A study of Rattus norvegicus with 15 samples.

Results

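This comparison asked which liver functions were lost and which were gained in rats with cirrhosis after inhalation of CCl4 (carbon tetrachloride), against livers of untreated rats. All male Wistar rats in the comparison weighed 75 to 100 g at the start. The cirrhosis group inhaled CCl4 for 12 weeks and had phenobarbital at 0.35 g/L in the drinking water, and the control group was given neither. Livers were taken 7 to 10 days after the last CCl4 exposure in 5 cirrhosis rats, and from 4 control rats with a column in the count table, so that 9 of the 14 columns entered, and the remaining 5, from cirrhotic rats that also received eplerenone at 100 mg/kg, entered only the estimate of the spread. Control replicate 1 was not analysed here. Animals were sent for sequencing by how well cirrhosis had been induced, so the cirrhosis group stands for successful induction. Phenobarbital was given together with CCl4 and its effect cannot be told apart from that of CCl4. Every gene of the table was a candidate, and 57 gene lists for cell types, lobular zones and pathways were used to describe it.

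CCl4 is turned into a reactive radical by the cytochrome P450 enzyme Cyp2e1, which lies in the hepatocytes around the central vein, and those hepatocytes die first. Repeated injury turns hepatic stellate cells, which store vitamin A when quiescent, into contractile myofibroblasts that lay down collagen, while bile duct cells multiply, macrophages enter and the open sinusoids acquire a wall. Hepatocytes of the periportal zone carry out urea synthesis, gluconeogenesis and amino acid breakdown, and those of the pericentral zone glutamine synthesis and drug oxidation. Poly(A) RNA of whole pieces of liver was sequenced, so fewer cells of a type and less RNA per cell cannot be told apart.

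Between 16157491 and 21574767 reads were counted per liver. Levels are given as FPM, counts per 1000000 of the library size scaled by TMM (trimmed mean of M values), and 3 counts correspond to 0.122 to 0.191 FPM. FPM values are listed in the order of control replicates 2 to 5 and then cirrhosis 1 to 5. A gene was said to rise or fall when its p in the quasi-likelihood test of edgeR, adjusted by Benjamini and Hochberg's method over all 14417 genes tested, was under 0.05, and log2FC is cirrhosis minus control with its standard error. Single livers are named by group and replicate number (control 2, cirrhosis 5), and each is from another rat.

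Cirrhosis 5 stood apart from the other cirrhotic livers. On the leading principal component of the 500 most variable genes, which held 77.7% of the variance, the controls lay between -48.7 and -42.2, cirrhosis 1 to 4 between 43.6 and 50.5, and cirrhosis 5 at -11.1. The sample titles carry a prefix that is 13 or 16 in controls, 15 in cirrhosis 1 to 3 and 20 in cirrhosis 4 and 5. Its meaning was not given in the sources used here, and any batch that follows it cannot be told apart from CCl4. The TMM factors were 0.847 to 0.877 in the controls and 0.968 to 1.21 in the cirrhotic livers, so scaling by total counted reads instead raised the median log2FC of all genes from -0.01 to 0.28, a shift of 0.29.

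Of the 14417 genes tested, 1939 (13.4%) were higher and 967 (6.71%) lower in cirrhosis, so 66.7% of the 2906 calls were rises. Without cirrhosis 5, 2590 (18.0%) were higher and 2022 (14.1%) lower. Scaled by total counted reads, 3055 were higher and 366 lower, and the share of rises was 89.3%. Of the calls, 900 of the higher genes (46.4%) had at least a 4-fold change against 121 of the lower genes (12.5%). The groups did not overlap for 2082 of the called genes (71.6%), beside 2910 of all genes tested (20.2%).

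The share of falls was highest among abundant transcripts. Of 116 genes with a mean of 1000 FPM or more over the 9 livers, 4 rose and 22 fell, with a median log2FC of -0.56, and 39.7% fell without cirrhosis 5. Among 1200 genes at 100 to 1000 FPM, 9.17% rose and 14.2% fell. Among 5220 genes at 1 to 10 FPM, 18.9% rose and 3.70% fell. The difference between classes was not tested.

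**Figure D1:**
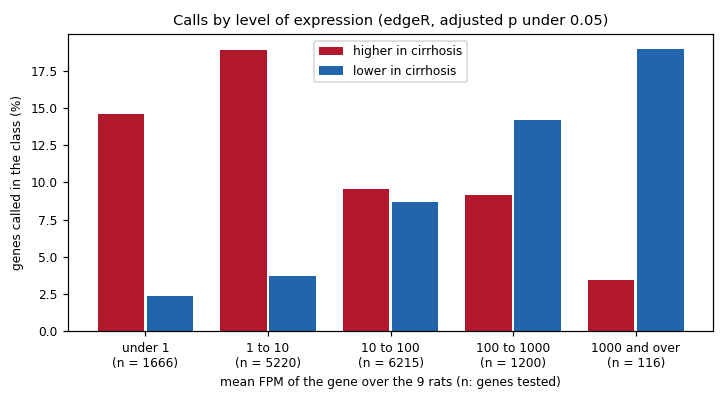
Share of genes called higher (red) or lower (blue) in cirrhosis, as a percentage of the genes tested in each class of mean FPM over the 9 livers. The share of rises is largest at 1 to 10 FPM (18.9%), and that of falls grows with the level, to 22 of 116 genes at 1000 FPM and over.

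The 57 lists held 996 tested genes. The median log2FC of 31 lists lay above that of all genes and that of 26 below it, and scaling by total counted reads changed this side for 0 of them once the shift of all genes was taken off. Medians are over the members that passed the filter on low counts. A member near 0 in the controls could pass only through the cirrhotic livers in which it was high, so the medians of mast cells (4.55), neutrophils (3.21), monocyte-derived macrophages (3.11) and bile duct cells (2.99) describe the genes that passed and are no measure of those cell types. The same holds for T and NK lymphocytes, and for the counts of members called in all of these lists. Low medians were those of male-biased liver genes (-1.97), peroxisomal and omega oxidation (-1.05) and sinusoidal endothelium (-0.98). Counts of members called are to be read beside the 13.4% and 6.71% of all genes, and falls in lists that mostly rose were named after their values were seen.

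**Figure D2:**
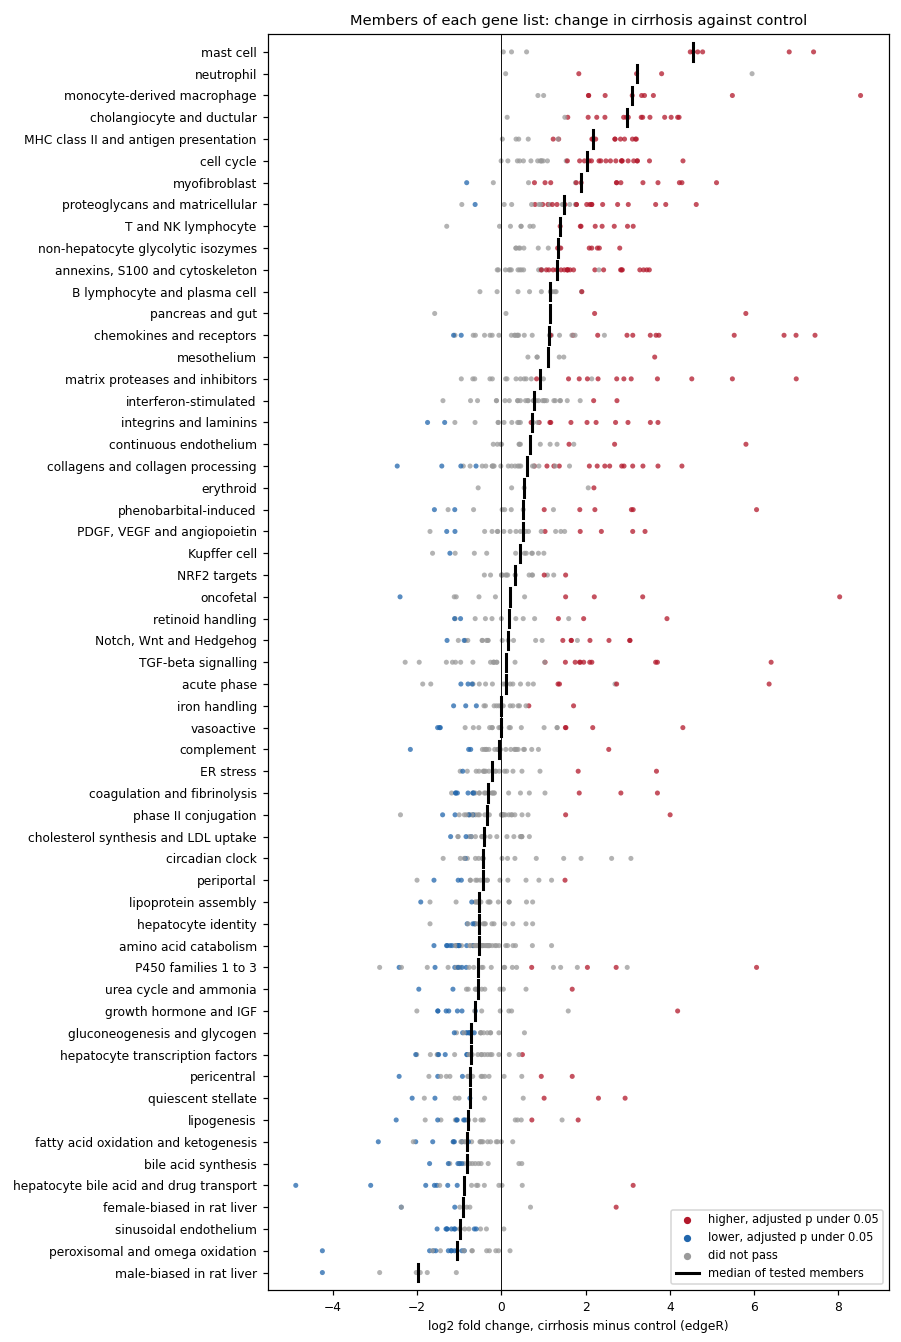
Log2 fold change of every tested member (points) of the 57 gene lists, sorted by list median (black bars), with calls in red (higher) or blue (lower) and genes that did not pass in grey. Points of genes with 0 counts in every control depend on the prior count of the fit. Medians run from -1.97 for male-biased liver genes to 4.55 for mast cell genes.

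Genes that define hepatocytes held 3 calls, all of falls. In the list of hepatocyte identity genes (secreted plasma proteins, the asialoglycoprotein receptor and lineage transcription factors) 3 of 19 tested genes fell and 0 rose by edgeR (1 by DESeq2 and 1 at an unadjusted p under 0.05), with a median log2FC of -0.52 beside -0.01 for all genes. The falls were 15.8% of the list, beside 6.71% of all genes. Albumin, Alb, stood at 115540.0, 121639, 123451 and 130558 FPM in the controls and 57392, 86206, 56104, 74416 and 122841 FPM in the cirrhotic livers. Cirrhosis 5 lay within the controls and the other cirrhotic livers below all of them, and the difference did not pass (log2FC -0.63 ± 0.30, adjusted p = 0.146). The members together took 17.6 to 19.6% of counted reads in the controls and 16.19 to 21.3% in the cirrhotic livers. Antithrombin, Serpinc1, fell (log2FC -0.68 ± 0.20, adjusted p = 0.0290), as did Asgr2, a subunit of the asialoglycoprotein receptor that clears desialylated glycoproteins (log2FC -0.64 ± 0.18, adjusted p = 0.0250). Serpinc1 lost its call without any 1 liver but cirrhosis 5 (adjusted p up to 0.0717) and Asgr2 without control 3, 4 or 5 or cirrhosis 1, 3 or 4 (adjusted p up to 0.0642). For hepatocyte identity, 0 or 1 fell without control 3, 4 or 5 or cirrhosis 1, 3 or 4, 7 fell without cirrhosis 5, 1 rose with total counted reads and 0 fell with total counted reads.

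Some transcription factors that hold the hepatocyte program fell, with 1 of 24 tested genes higher and 6 lower in a list with a median log2FC of -0.72. Hnf4a, the nuclear receptor central to hepatocyte differentiation, was at 331, 661, 505 and 554 FPM in the controls and 320.2, 286, 262, 220.5 and 374 FPM in the cirrhotic livers. It fell (log2FC -0.81 ± 0.24, adjusted p = 0.0290), with control 2 inside the range of the cirrhotic livers. Ppara, the fatty acid sensor that drives lipid oxidation genes, had 10.7, 7.57, 8.73 and 8.71 FPM in the controls and 0.832, 2.41, 1.46, 2.87 and 3.33 FPM in the cirrhotic livers. All cirrhotic livers lay below all controls (log2FC -2.03 ± 0.45, adjusted p = 0.00784), and the call held without any 1 animal. Nr1i3, or CAR, which mediates the response to phenobarbital, was at 139, 86.8, 80.5 and 51.8 FPM in the controls and 29.8, 14.5, 27.7, 26.6 and 58.9 FPM in the cirrhotic livers. It fell (log2FC -1.51 ± 0.37, adjusted p = 0.0124), with cirrhosis 5 above the lowest control. Prox1 (log2FC -1.49 ± 0.48, adjusted p = 0.0423) and Foxa2 (log2FC -1.33 ± 0.39, adjusted p = 0.0298), both factors of liver development, fell. The rise was that of Foxa3 (log2FC 0.50 ± 0.15, adjusted p = 0.0282), named after its values were seen. Cebpa, which keeps hepatocytes differentiated, did not pass (log2FC -0.22 ± 0.34, adjusted p = 0.651). Hnf4a lost its call without control 3, 4 or 5 or cirrhosis 3 or 4 (adjusted p up to 0.0951), Prox1 without control 3, 4 or 5 or cirrhosis 1, 3 or 4 (adjusted p up to 0.106), Foxa2 without control 2 or 5 or cirrhosis 1, 3 or 4 (adjusted p up to 0.110) and Foxa3 without control 2 or 5 or cirrhosis 3 (adjusted p up to 0.0866). For these factors, 0 rose without control 2 or 5 or cirrhosis 3, 3 fell without control 5 or cirrhosis 3 or 4, 11 fell without cirrhosis 5, 2 rose with total counted reads and 2 fell with total counted reads.

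For pericentral genes 2 of 18 tested genes rose and 3 fell (11.1% and 16.7%, beside 13.4% and 6.71% of all genes), with a median log2FC of -0.73. Cyp2e1, the enzyme that activates CCl4, stood at 2149, 2255, 1456 and 1792 FPM in the controls and 3182, 1617, 2239, 1120.4 and 1858 FPM in the cirrhotic livers. The groups overlapped entirely and the difference did not pass (log2FC 0.07 ± 0.40, adjusted p = 0.917). Cyp1a2, a drug-oxidising P450 of the same zone, had 699.6, 1015, 369 and 482 FPM in the controls and 217, 56.8, 117, 24.4 and 183 FPM in the cirrhotic livers. Cirrhotic livers were all below the controls (log2FC -2.42 ± 0.75, adjusted p = 0.0358). Glul, the glutamine synthetase of the cells next to the central vein, was at 168, 265, 217 and 249 FPM in the controls and 122, 74.7, 102, 151 and 204 FPM in the cirrhotic livers. Cirrhosis 5 lay within the controls and the other cirrhotic livers below them (log2FC -0.78 ± 0.40, adjusted p = 0.166). Rhbg, an ammonia transporter of the same cells, rose from 4.70, 5.44, 3.17 and 3.498 FPM in the controls to 10.9, 6.73, 10.4, 16.5 and 23.2 FPM in the cirrhotic livers (log2FC 1.68 ± 0.44, adjusted p = 0.0167), without overlap. Lect2, a secreted hepatocyte protein, also rose (log2FC 0.95 ± 0.27, adjusted p = 0.0233). Cyp1a2 lost its call without control 2, 3 or 5 or cirrhosis 2, 3 or 4 (adjusted p up to 0.0928), Rhbg without control 4 or 5 (adjusted p up to 0.0574) and Lect2 without control 3, 4 or 5 or cirrhosis 3 (adjusted p up to 0.0718). For pericentral genes, 0 or 1 rose without control 3, 4 or 5 or cirrhosis 3, 1 fell without control 3 or 5 or cirrhosis 2 or 3 and 6 fell without cirrhosis 5.

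Some periportal genes separated the cirrhotic livers from each other. In the periportal list 1 of 18 tested genes rose and 3 fell, with a median log2FC of -0.44. Ass1, which forms argininosuccinate in the urea cycle, was at 2478, 2876, 1837 and 2047 FPM in the controls and 2324, 2327, 2736, 596 and 822 FPM in the cirrhotic livers. Cirrhosis 4 and 5 lay far below the controls and cirrhosis 1 to 3 inside their range (log2FC -0.39 ± 0.45, adjusted p = 0.532). Asl, the next enzyme of the cycle and named after its values were seen, had 487, 416, 443 and 418 FPM in the controls and 925, 784, 1081, 305 and 218 FPM in the cirrhotic livers. It was above the controls in cirrhosis 1 to 3 and below them in replicates 4 and 5, the animals with the other title prefix, and did not pass (log2FC 0.59 ± 0.41, adjusted p = 0.302). Hal, which opens histidine breakdown, was at 248, 325, 269 and 337 FPM in the controls and 172, 119.5, 114, 30.6 and 51.2 FPM in the cirrhotic livers. Each cirrhotic liver was below each control, the lowest again replicates 4 and 5 (log2FC -1.60 ± 0.49, adjusted p = 0.0344). Cyp2f4, a P450, and Ctsc, a lysosomal protease, fell (log2FC -1.02 ± 0.28, adjusted p = 0.0225 and log2FC -0.95 ± 0.25, adjusted p = 0.0173), and Aldh1b1, a mitochondrial aldehyde dehydrogenase, rose (log2FC 1.51 ± 0.47, adjusted p = 0.0350). Arg1 (log2FC -0.61 ± 0.29, adjusted p = 0.143), Pck1 (log2FC -0.73 ± 0.37, adjusted p = 0.165) and G6pc (log2FC -0.33 ± 0.61, adjusted p = 0.7103), which complete urea and glucose production, did not pass. In cirrhosis 1 to 5 Arg1 was at 708, 1178, 658, 702 and 835 FPM and Pck1 at 1932, 2163, 2109, 1889 and 2426 FPM. G6pc had 968, 311, 378, 173 and 504 FPM there. In none of these genes were cirrhosis 4 and 5 both below cirrhosis 1 to 3, unlike in Ass1, Asl and Hal. Hal lost its call without any 1 control or cirrhosis 3 or 4 (adjusted p up to 0.0829), Cyp2f4 without control 4 or 5 or cirrhosis 3 or 4 (adjusted p up to 0.0676), Ctsc without control 5 (adjusted p up to 0.0515) and Aldh1b1 without any 1 control or cirrhosis 1 or 3 (adjusted p up to 0.0894). For periportal genes, 0 rose without any 1 control or cirrhosis 1 or 3, 2 rose without cirrhosis 5, 0 or 1 fell without control 4 or 5 or cirrhosis 3 or 4 and 2 rose with total counted reads.

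Of the drug-metabolising P450 families 1 to 3, 4 of 30 tested genes rose and 6 fell. The rises were 13.3% of the list, a share like the 13.4% of all genes, and falls were 6.71% of all genes. The list had a median log2FC of -0.56. A read with several alignments was counted for each of them, so values of close paralogues (P450s, glutathione transferases, RT1 genes) are uncertain. Cyp2a1, a steroid hydroxylase, was at 1591, 1623, 1450.0 and 1199 FPM in the controls and 697, 665, 799, 552 and 698 FPM in the cirrhotic livers. Groups did not overlap (log2FC -1.10 ± 0.22, adjusted p = 0.00400), and the call held without any 1 animal. Cyp3a62 had 5.43, 7.98, 6.65 and 11.1 FPM in the controls and 23.1, 40.1, 28.5, 42.5 and 26.5 FPM in the cirrhotic livers, again without overlap (log2FC 2.04 ± 0.29, adjusted p = 0.000875). For these P450 genes, 1 or 2 rose without any 1 liver but cirrhosis 5, 2 or 3 fell without any 1 control or cirrhosis 3 or 4 and 10 fell without cirrhosis 5.

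Genes induced by phenobarbital were mixed: 6 of 15 tested genes rose and 2 fell, with a median log2FC of 0.52. Cyp2b1, the P450 most used as a sign of phenobarbital exposure, was at 5.07, 4.45, 1.40 and 3.24 FPM in the controls and 37.9, 45.2, 14.4, 1067 and 17.3 FPM in the cirrhotic livers. All cirrhotic livers were above the controls, and cirrhosis 4 was far above the other cirrhotic livers (log2FC 6.06 ± 1.68, adjusted p = 0.0223). Abcc3, a basolateral exporter of conjugates and bile acids, had 2.53, 2.83, 3.36 and 1.78 FPM in the controls and 13.7, 23.1, 12.19, 59.3 and 6.84 FPM in the cirrhotic livers, with cirrhosis 4 again highest and no overlap (log2FC 3.13 ± 0.69, adjusted p = 0.00763). Ephx1, microsomal epoxide hydrolase (log2FC 1.02 ± 0.34, adjusted p = 0.0490), Gadd45b, a stress-response gene (log2FC 2.22 ± 0.66, adjusted p = 0.0295), and Aldh1a7, an aldehyde dehydrogenase (log2FC 3.09 ± 0.87, adjusted p = 0.0236), rose. Cyp2a1 fell, as did Abcc2, exporter of bilirubin conjugates into bile (log2FC -1.59 ± 0.49, adjusted p = 0.0344), named after its values were seen. Cyp2b1 lost its call without any 1 control or cirrhosis 4 (adjusted p up to 0.0740), Ephx1 without any 1 control or cirrhosis 1, 3 or 4 (adjusted p up to 0.124), Gadd45b without control 2, 3 or 5 or cirrhosis 1, 3 or 4 (adjusted p up to 0.0910), Aldh1a7 without control 4 or 5 or cirrhosis 2 (adjusted p up to 0.0650) and Abcc2 without any 1 control or cirrhosis 1, 2 or 3 (adjusted p up to 0.0822). For phenobarbital-induced genes, 2 or 3 rose without any 1 control or cirrhosis 4, 1 fell without any 1 control or cirrhosis 1, 2 or 3 and 1 fell with total counted reads.

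Among conjugating enzymes 2 of 32 tested genes rose and 4 fell, with a median log2FC of -0.34. Gsta3, a glutathione transferase, was at 7.06, 10.5, 2.08 and 1.34 FPM in the controls and 105, 100.7, 76.8, 113 and 26.6 FPM in the cirrhotic livers. It rose without overlap (log2FC 4.01 ± 0.77, adjusted p = 0.00366). Gstp1, the transferase that marks preneoplastic rat hepatocytes and bile duct cells, rose with cirrhosis 5 among the controls (log2FC 1.53 ± 0.38, adjusted p = 0.0138). Sult1c3, a sulfotransferase (log2FC -1.39 ± 0.43, adjusted p = 0.0358), and Ugt2b15, a glucuronosyltransferase for androgens (log2FC -1.10 ± 0.35, adjusted p = 0.0402), fell. Gstp1 lost its call without control 5 (adjusted p up to 0.0531), Sult1c3 without any 1 liver but cirrhosis 5 (adjusted p up to 0.0835) and Ugt2b15 without control 3, 4 or 5 or cirrhosis 1, 2 or 3 (adjusted p up to 0.1003). For conjugating enzymes, 1 rose without control 5, 0 to 2 fell without any 1 liver but cirrhosis 5, 9 fell without cirrhosis 5 and 1 fell with total counted reads.

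Genes that male rat liver expresses above female liver lay far below the controls in 4 of the 5 cirrhotic livers. Pulsed growth hormone maintains this male pattern. Cyp2c11, the main male P450 and named after its values were seen, stood at 2198, 1942, 1596 and 1512 FPM in the controls and 4.66, 3.06, 4.69, 29.6 and 1184 FPM in the cirrhotic livers. Cirrhosis 1 to 4 lay far below the controls and cirrhosis 5 below them by less, and the difference did not pass (log2FC -2.89 ± 1.57, adjusted p = 0.191), while without cirrhosis 5 the adjusted p was 0.00193. Ca3, carbonic anhydrase 3 of male hepatocytes, also named after its values were seen, had 3259, 2378, 3219.8 and 3037 FPM in the controls and 90.4, 12.9, 28.6, 10.4 and 3779.9 FPM in the cirrhotic livers. Cirrhosis 5 exceeded every control while the other cirrhotic livers lay far below (log2FC -1.92 ± 1.49, adjusted p = 0.352). Hsd3b5, a steroid dehydrogenase named in the same way, was at 1505, 1485, 1617 and 1708 FPM in the controls and 182, 22.6, 554, 45.6 and 1146 FPM in the cirrhotic livers, with cirrhosis 5 nearest to the controls (log2FC -2.02 ± 0.92, adjusted p = 0.124). Cyp4a2, which hydroxylates fatty acids, was called, at 1724, 565, 1346 and 622 FPM in the controls and 52.8, 20.4, 32.5, 3.23 and 172 FPM in the cirrhotic livers (log2FC -4.24 ± 1.23, adjusted p = 0.0271). Cyp4a2 lost its call without control 2 or 4 or cirrhosis 1, 3 or 4 (adjusted p up to 0.0641). In this list 1 of 6 tested genes fell and 0 rose by edgeR, by DESeq2 or at an unadjusted p under 0.05, with a median log2FC of -1.97. For male-biased genes, 0 fell without control 2 or 4 or cirrhosis 1, 3 or 4 and 6 fell without cirrhosis 5.

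Female-biased genes did not move together, with 1 of 8 tested genes higher and 2 lower and a median log2FC of -0.90. Cyp2c12, the main female P450, was at 32.7, 35.4, 37.7 and 44.9 FPM in the controls and 145, 515, 203, 319.7 and 64.0 FPM in the cirrhotic livers. It rose without overlap (log2FC 2.73 ± 0.88, adjusted p = 0.0408), with cirrhosis 5 lowest of the cirrhotic livers. Srd5a1, the steroid 5-alpha reductase, fell from 314, 726, 373 and 480.3 FPM in the controls to 119, 127, 113, 69.8 and 27.8 FPM in the cirrhotic livers (log2FC -2.37 ± 0.45, adjusted p = 0.00365), and here cirrhosis 5 was lowest. Cyp2c12 lost its call without any 1 liver but cirrhosis 5 (adjusted p up to 0.0940). For female-biased genes, 0 rose without any 1 liver but cirrhosis 5.

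The growth hormone axis was lower at its receptor and its hepatic products, with 1 of 15 tested genes higher and 7 lower and a median log2FC of -0.63. Ghr, the growth hormone receptor, was at 437, 366, 392 and 406 FPM in the controls and 85.5, 151, 100.2, 108 and 261 FPM in the cirrhotic livers. No overlap was seen between groups, with cirrhosis 5 closest to the controls (log2FC -1.51 ± 0.34, adjusted p = 0.00784), and the call held without any 1 animal. Igf1, the circulating growth factor made under growth hormone, fell (log2FC -0.93 ± 0.31, adjusted p = 0.0444), as did Igfals, which stabilises it in plasma (log2FC -1.31 ± 0.34, adjusted p = 0.0163), and Irs1, an insulin receptor substrate (log2FC -1.51 ± 0.45, adjusted p = 0.0301). Igfbp2, a binding protein that normal adult liver makes little of, stood at 10.6, 4.68, 3.30 and 0.636 FPM in the controls and 74.8, 193, 83.2, 84.9 and 1.61 FPM in the cirrhotic livers. It rose in cirrhosis 1 to 4 and lay within the controls in replicate 5 (log2FC 4.18 ± 1.10, adjusted p = 0.0177). Igf1 lost its call without any 1 liver but cirrhosis 5 (adjusted p up to 0.0994), Igfals without control 5 (adjusted p up to 0.0562), Irs1 without control 2, 3 or 5 or cirrhosis 1, 3 or 4 (adjusted p up to 0.0867) and Igfbp2 without control 3, 4 or 5 (adjusted p up to 0.0546). For this axis, 0 rose without control 3, 4 or 5, 2 rose without cirrhosis 5, 2 to 4 fell without control 2, 3 or 5 or cirrhosis 1, 3 or 4, 2 rose with total counted reads and 3 fell with total counted reads.

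Genes for side-chain shortening and conjugation of bile acids fell, while the rate-limiting step did not pass. In bile acid synthesis 5 of 16 tested genes fell and 0 rose by edgeR, by DESeq2 or at an unadjusted p under 0.05, with a median log2FC of -0.81. Acox2, the peroxisomal oxidase of bile acid intermediates, was at 616, 672, 493 and 535 FPM in the controls and 241, 302, 240.1, 167 and 262 FPM in the cirrhotic livers. The cirrhotic livers all lay below the controls (log2FC -1.26 ± 0.29, adjusted p = 0.00955). Slc27a2, which activates bile acids and very long fatty acids, had 1243, 964, 1159.8 and 1052 FPM in the controls and 468, 539.6, 440.1, 544 and 789 FPM in the cirrhotic livers, likewise without overlap (log2FC -0.99 ± 0.25, adjusted p = 0.0142). Amacr, the racemase of the same pathway (log2FC -1.70 ± 0.56, adjusted p = 0.0435), and Baat, which couples bile acids to glycine or taurine (log2FC -1.03 ± 0.34, adjusted p = 0.0460), fell too. Cyp7a1, the rate-limiting enzyme, was at 44.9, 110.3, 84.9 and 56.1 FPM in the controls and 155, 72.1, 102, 92.6 and 97.5 FPM in the cirrhotic livers, with overlapping groups (log2FC 0.49 ± 0.37, adjusted p = 0.339). Amacr and Baat lost their calls without any 1 liver but cirrhosis 5 (adjusted p up to 0.103 and 0.108). For bile acid synthesis, 2 or 3 fell without any 1 liver but cirrhosis 5 and 8 fell without cirrhosis 5.

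Several hepatocyte transporters fell, with 1 of 16 tested genes higher and 7 lower and a median log2FC of -0.88. Abcg8, which with Abcg5 exports sterols into bile, was at 10.1, 20.7, 3.66 and 3.82 FPM in the controls and 0.222, 1.06, 0.162, 0 and 0.0595 FPM in the cirrhotic livers. All cirrhotic livers lay below all controls, and cirrhosis 4 had 0 counts (log2FC -4.88 ± 0.98, adjusted p = 0.00461). Abcg5 fell alongside (log2FC -3.10 ± 0.81, adjusted p = 0.0178). Slco1a1, a sinusoidal uptake carrier for organic anions, had 144, 132, 126 and 152 FPM in the controls and 19.9, 57.8, 17.5, 23.4 and 81.1 FPM in the cirrhotic livers. There was no overlap (log2FC -1.79 ± 0.48, adjusted p = 0.0194), and the rise of the list was that of Abcc3. Abcg5 lost its call without control 3 (adjusted p up to 0.0674) and Slco1a1 without control 5 (adjusted p up to 0.0508). For these transporters, 3 or 4 fell without control 3 or 5 or cirrhosis 3.

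Several genes of fatty acid oxidation fell. In the mitochondrial and ketogenic list 7 of 24 tested genes fell and 0 rose by edgeR, by DESeq2 or at an unadjusted p under 0.05, with a median log2FC of -0.81. Acsl1, which activates long-chain fatty acids, was at 1532, 1763, 1482 and 1699.7 FPM in the controls and 419.6, 558, 328, 349 and 967 FPM in the cirrhotic livers. The groups did not overlap (log2FC -1.63 ± 0.39, adjusted p = 0.0116), and the call held without any 1 animal. Pdk4, the kinase that turns pyruvate use down in favour of fat, had 23.3, 27.2, 28.1 and 59.0 FPM in the controls and 2.995, 8.53, 2.10, 2.51 and 6.49 FPM in the cirrhotic livers, with control 5 highest (log2FC -2.92 ± 0.77, adjusted p = 0.0178). Etfdh, which passes electrons from fatty acid oxidation to the respiratory chain, fell (log2FC -1.14 ± 0.32, adjusted p = 0.0230). Pdk4 lost its call without control 5 (adjusted p up to 0.0601) and Etfdh without control 4 or 5 or cirrhosis 1, 3 or 4 (adjusted p up to 0.0759). For mitochondrial oxidation, 3 or 4 fell without control 4 or 5 or cirrhosis 1, 3 or 4, 12 fell without cirrhosis 5 and 1 rose with total counted reads.

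In the peroxisomal and omega oxidation list 11 of 21 tested genes fell and 0 rose by edgeR, by DESeq2 or at an unadjusted p under 0.05, with a median log2FC of -1.05, and Acox2, Amacr and Cyp4a2 belong to it. Catalase, Cat, which removes hydrogen peroxide in peroxisomes, was at 3126, 2423, 2672 and 2712 FPM in the controls and 397, 831, 319, 796 and 2136 FPM in the cirrhotic livers. Cirrhotic livers were all below the controls, with cirrhosis 5 close to them (log2FC -1.61 ± 0.47, adjusted p = 0.0288). Pex11a, which drives peroxisome division, fell (log2FC -1.55 ± 0.38, adjusted p = 0.0119), and that call held without any 1 animal. Cat lost its call without any 1 control or cirrhosis 1, 3 or 4 (adjusted p up to 0.0641). For peroxisomal and omega oxidation, 3 to 6 fell without any 1 control or cirrhosis 1, 3 or 4.

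Fat synthesis was lower at several steps, with 2 of 20 tested genes higher and 6 lower and a median log2FC of -0.80. Dgat2, the last step of triglyceride synthesis, was at 423, 559, 435 and 446 FPM in the controls and 192, 204, 190.03, 199 and 330.4 FPM in the cirrhotic livers. Groups did not overlap, and cirrhosis 5 stood above the other cirrhotic livers (log2FC -1.06 ± 0.23, adjusted p = 0.00728). Elovl5, an elongase of polyunsaturated fatty acids (log2FC -2.49 ± 0.69, adjusted p = 0.0219), and Lpin1, a phosphatidate phosphatase (log2FC -1.51 ± 0.51, adjusted p = 0.0496), fell. Scd2, a desaturase that adult hepatocytes use little, rose from 5.55, 5.72, 3.36 and 4.90 FPM in the controls to 16.0, 26.7, 14.6, 18.5 and 10.6 FPM in the cirrhotic livers (log2FC 1.82 ± 0.30, adjusted p = 0.00171). Elovl5 lost its call without control 3 or 5 or cirrhosis 1 or 4 (adjusted p up to 0.0592) and Lpin1 without control 2, 3 or 5 or any 1 of cirrhosis 1 to 4 (adjusted p up to 0.246). For lipogenesis, 1 rose without any 1 control or cirrhosis 1, 3 or 4, 1 to 3 fell without control 3, 4 or 5 or cirrhosis 1 or 4 and 2 fell with total counted reads.

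Some cholesterol synthesis and lipoprotein genes fell. In the cholesterol list 3 of 22 tested genes fell and 0 rose by edgeR, by DESeq2 or at an unadjusted p under 0.05, with a median log2FC of -0.42, and the falls were those of the sterol enzymes Sc5d (log2FC -0.84 ± 0.23, adjusted p = 0.0212) and Nsdhl (log2FC -0.71 ± 0.21, adjusted p = 0.0293) and of the cholesterol carrier Stard4 (log2FC -1.20 ± 0.37, adjusted p = 0.0354). In lipoprotein assembly 2 of 18 tested genes fell and 0 rose by edgeR, by DESeq2 or at an unadjusted p under 0.05, with a median log2FC of -0.52. Apoa4, an apolipoprotein that is released with triglyceride-rich particles, was at 413, 662, 545 and 753 FPM in the controls and 129.6, 215, 88.7, 112 and 244 FPM in the cirrhotic livers. Each cirrhotic liver was below each control (log2FC -1.91 ± 0.44, adjusted p = 0.00913). Lipc, hepatic lipase, fell as well (log2FC -0.70 ± 0.23, adjusted p = 0.0469). Sc5d lost its call without control 3 (adjusted p up to 0.0743), Nsdhl without control 3, 4 or 5 or cirrhosis 2, 3 or 4 (adjusted p up to 0.0783), Stard4 without any 1 control or cirrhosis 1, 3 or 4 (adjusted p up to 0.0907) and Lipc without any 1 control or cirrhosis 2, 3 or 4 (adjusted p up to 0.113). For cholesterol genes, 0 or 1 fell without control 3, 4 or 5 or cirrhosis 3 or 4 and 0 fell with total counted reads. For lipoprotein genes, 1 fell without any 1 control or cirrhosis 3 or 4, 6 fell without cirrhosis 5 and 1 fell with total counted reads.

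Several genes of amino acid breakdown fell, with 12 of 50 tested genes lower and 0 higher by edgeR, by DESeq2 or at an unadjusted p under 0.05 and a median log2FC of -0.53. Hao1, the peroxisomal oxidase that turns glycolate into glyoxylate, was at 395, 434, 459 and 539 FPM in the controls and 144, 189.9, 121, 157 and 316 FPM in the cirrhotic livers. No overlap was seen between groups (log2FC -1.30 ± 0.34, adjusted p = 0.0182). Tdo2, which opens the kynurenine route of tryptophan (log2FC -1.21 ± 0.35, adjusted p = 0.0259), and Kynu, a later enzyme of that route (log2FC -1.28 ± 0.35, adjusted p = 0.0218), fell together with Hal. Hao1 lost its call without control 5 (adjusted p up to 0.0573), Tdo2 without control 2 or 3 or cirrhosis 1 or 3 (adjusted p up to 0.0821) and Kynu without control 5 or cirrhosis 3 (adjusted p up to 0.0620). For amino acid catabolism, 3 to 6 fell without any 1 control or cirrhosis 1, 3 or 4 and 7 fell with total counted reads.

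In the urea cycle and ammonia list 1 of 14 tested genes rose and 2 fell, with a median log2FC of -0.56. Otc, which forms citrulline in mitochondria, was at 518, 479, 479 and 473 FPM in the controls and 164, 265, 148, 179 and 344 FPM in the cirrhotic livers. The cirrhotic livers all lay below the controls (log2FC -1.15 ± 0.31, adjusted p = 0.0200). Slc25a13, the mitochondrial aspartate carrier that feeds the cycle, fell with overlap (log2FC -1.96 ± 0.64, adjusted p = 0.0438), and Rhbg was the rise. Cps1, the entry enzyme, had 2405, 3020.3, 2448 and 2878 FPM in the controls and 2148, 2743, 1713, 761 and 1390.5 FPM in the cirrhotic livers. Its lowest values were again those of cirrhosis 4 and 5, and it did not pass (log2FC -0.62 ± 0.41, adjusted p = 0.276). Otc lost its call without cirrhosis 3 (adjusted p up to 0.0501) and Slc25a13 without control 3, 4 or 5 or cirrhosis 1, 3 or 4 (adjusted p up to 0.119). For urea cycle genes, 0 rose without control 4 or 5, 0 or 1 fell without control 3, 4 or 5 or cirrhosis 1, 3 or 4 and 1 fell with total counted reads.

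Genes of glycogen and glucose production fell in part. In gluconeogenesis and glycogen 7 of 22 tested genes fell and 0 rose by edgeR, by DESeq2 or at an unadjusted p under 0.05, with a median log2FC of -0.72. Gbe1, the glycogen branching enzyme, was at 216, 297, 241 and 238 FPM in the controls and 85.0, 129, 71.96, 109 and 178 FPM in the cirrhotic livers. There was no overlap between groups (log2FC -1.11 ± 0.26, adjusted p = 0.00961). Pygl, liver glycogen phosphorylase (log2FC -0.83 ± 0.27, adjusted p = 0.0425), and Pc, pyruvate carboxylase (log2FC -0.92 ± 0.29, adjusted p = 0.0390), fell. Pygl lost its call without any 1 liver but cirrhosis 5 (adjusted p up to 0.108) and Pc without control 3, 4 or 5 or cirrhosis 2, 3 or 4 (adjusted p up to 0.119). For gluconeogenesis and glycogen, 1 to 4 fell without any 1 liver but cirrhosis 5 and 2 fell with total counted reads.

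Several glycolytic isozymes that hepatocytes use little rose, with 7 of 15 tested genes higher and 0 lower by edgeR, by DESeq2 or at an unadjusted p under 0.05 and a median log2FC of 1.34. Pkm, the pyruvate kinase of muscle and dividing cells, was at 10.7, 10.2, 10.1 and 10.5 FPM in the controls and 60.1, 42.9, 93.1, 49.3 and 14.8 FPM in the cirrhotic livers. All cirrhotic livers lay above all controls, cirrhosis 5 by the smallest margin (log2FC 2.33 ± 0.46, adjusted p = 0.00400). Ldhb, the heart form of lactate dehydrogenase, had 1.81, 1.56, 1.89 and 1.72 FPM in the controls and 17.9, 11.6, 8.95, 14.9 and 7.97 FPM in the cirrhotic livers, without overlap (log2FC 2.81 ± 0.46, adjusted p = 0.00164). Pfkp, the platelet phosphofructokinase (log2FC 2.15 ± 0.49, adjusted p = 0.00876), and Slc16a3, a lactate exporter (log2FC 2.28 ± 0.57, adjusted p = 0.0133), rose as well. Slc16a3 lost its call without control 5 (adjusted p up to 0.0504).

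Coagulation genes held calls in both directions. In coagulation and fibrinolysis 3 of 27 tested genes rose and 6 fell, with a median log2FC of -0.32. F3, tissue factor, which starts clotting, was at 0.663, 0.925, 0.977 and 0.700 FPM in the controls and 7.32, 3.02, 6.15, 10.4 and 2.56 FPM in the cirrhotic livers. The groups did not overlap (log2FC 2.84 ± 0.52, adjusted p = 0.00276). Plat, a plasminogen activator, rose (log2FC 1.85 ± 0.58, adjusted p = 0.0363), and factor IX, F9, fell (log2FC -1.09 ± 0.33, adjusted p = 0.0334). F9 lost its call without any 1 control or cirrhosis 1, 3 or 4 (adjusted p up to 0.0829) and Plat without any 1 control or cirrhosis 1 or 4 (adjusted p up to 0.106). For coagulation genes, 1 or 2 fell without any 1 control or cirrhosis 1, 3 or 4, 5 rose with total counted reads and 1 fell with total counted reads.

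In complement 1 of 25 tested genes rose and 3 fell, with a median log2FC of -0.05. C7, a terminal component, was at 0.965, 2.43, 1.04 and 2.42 FPM in the controls and 6.49, 27.1, 4.26, 6.0002 and 6.31 FPM in the cirrhotic livers, with cirrhosis 2 highest and no overlap (log2FC 2.55 ± 0.65, adjusted p = 0.0151). Masp1, a protease of the lectin pathway (log2FC -2.16 ± 0.60, adjusted p = 0.0233), C8a (log2FC -0.77 ± 0.22, adjusted p = 0.0237) and C6 (log2FC -0.73 ± 0.21, adjusted p = 0.0293), both terminal components, fell. Masp1 lost its call without control 5 or cirrhosis 1, 3 or 4 (adjusted p up to 0.0699), C8a without control 3 or 5 or cirrhosis 1, 3 or 4 (adjusted p up to 0.0802) and C6 without control 3, 4 or 5 or cirrhosis 3 or 4 (adjusted p up to 0.0872). For complement genes, 0 or 1 fell without control 3 or 5 or cirrhosis 1, 3 or 4, 5 rose with total counted reads and 1 fell with total counted reads.

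A few acute phase genes rose strongly in a list where 4 of 22 tested genes rose and 3 fell, with a median log2FC of 0.11. Lcn2, which binds bacterial siderophores, was at 2.051, 0.810, 1.65 and 0.636 FPM in the controls and 190.4, 47.1, 209.8, 70.2 and 11.8 FPM in the cirrhotic livers. Cirrhotic livers were all above the controls, with cirrhosis 5 lowest (log2FC 6.35 ± 1.14, adjusted p = 0.00257), and it was the largest rise among called genes without overlap that had a mean of at least 1 FPM in both groups. Lbp, which binds lipopolysaccharide, had 81.2, 59.8, 81.8 and 143 FPM in the controls and 525, 592, 646, 1018 and 267 FPM in the cirrhotic livers. Again the groups did not overlap (log2FC 2.74 ± 0.42, adjusted p = 0.00119). Orm1, an acid glycoprotein (log2FC 1.38 ± 0.34, adjusted p = 0.0133), and Cebpd, a factor of the acute response (log2FC 1.35 ± 0.44, adjusted p = 0.0427), rose too. Apcs, serum amyloid P (log2FC -0.96 ± 0.17, adjusted p = 0.00216), the fibrinogen chain Fga (log2FC -0.79 ± 0.24, adjusted p = 0.0326) and Steap4, a metalloreductase (log2FC -0.69 ± 0.23, adjusted p = 0.0481), fell. Cebpd lost its call without any 1 control or cirrhosis 1, 3 or 4 (adjusted p up to 0.111), Fga without control 3, 4 or 5 or cirrhosis 1, 3 or 4 (adjusted p up to 0.09996) and Steap4 without any 1 liver but cirrhosis 5 (adjusted p up to 0.151). For acute phase genes, 1 fell without control 4 or 5 or cirrhosis 1, 3 or 4, 5 fell without cirrhosis 5 and 1 fell with total counted reads.

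For iron handling 2 of 17 tested genes rose and 3 fell, with a median log2FC of -0.01. Hamp, the iron hormone hepcidin, was at 771, 849, 449 and 522 FPM in the controls and 1176, 363, 903, 262 and 643 FPM in the cirrhotic livers. Its groups overlapped entirely (log2FC 0.05 ± 0.38, adjusted p = 0.939), while Id1, a gene that bone morphogenetic proteins induce alongside it, rose (log2FC 1.71 ± 0.42, adjusted p = 0.0126). Aco1, an iron-sensing aconitase, fell from 88.5, 107, 93.7 and 119 FPM in the controls to 52.0, 55.9, 49.1, 57.5 and 69.9 FPM in the cirrhotic livers (log2FC -0.84 ± 0.19, adjusted p = 0.00899). Ireb2, the related iron sensor, fell (log2FC -1.13 ± 0.30, adjusted p = 0.0190) and Slc11a2, an iron importer, rose (log2FC 0.65 ± 0.14, adjusted p = 0.00744). Ireb2 lost its call without control 4 or 5 (adjusted p up to 0.0643). For iron handling, 1 fell without control 4 or 5.

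**Figure D3:**
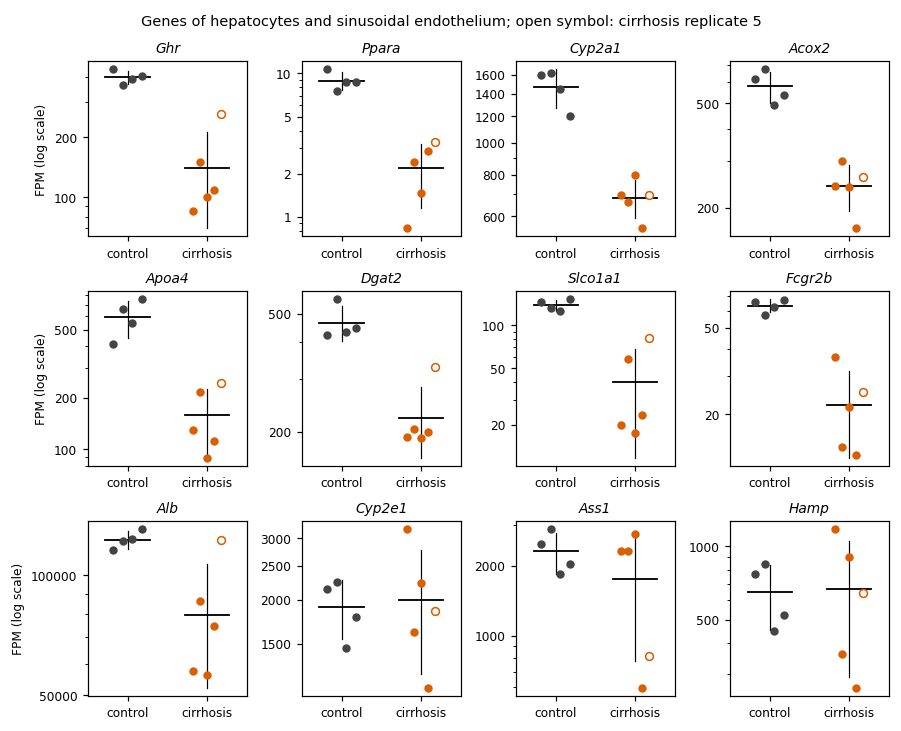
FPM (log axis) of 12 genes of hepatocytes and sinusoidal endothelium in 4 control (grey) and 5 cirrhotic (orange) livers; the open symbol is cirrhosis 5, horizontal lines are means and vertical bars 1 SD either way. Ghr, Ppara, Cyp2a1, Acox2, Apoa4, Dgat2, Slco1a1 and Fcgr2b do not overlap between groups, while Alb, Cyp2e1, Ass1 and Hamp do.

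Many extracellular matrix genes rose. For collagens and their processing 14 of 38 tested genes rose and 4 fell, with a median log2FC of 0.60. Col1a1, the chain of scar collagen I, was at 2.83, 6.13, 6.90 and 4.26 FPM in the controls and 67.2, 37.6, 94.8, 48.6 and 10.6 FPM in the cirrhotic livers. Each cirrhotic liver was above each control, cirrhosis 5 closest to them (log2FC 3.36 ± 0.52, adjusted p = 0.00125). Col3a1, of collagen III, which normal liver also makes, had 92.6, 139, 157 and 113 FPM in the controls and 264, 167, 272, 193 and 187 FPM in the cirrhotic livers, without overlap (log2FC 0.79 ± 0.21, adjusted p = 0.0198). Lox, a lysyl oxidase that crosslinks collagen, was at 0.241, 1.33, 0.488 and 0.572 FPM in the controls and 9.10, 5.998, 14.02, 8.82 and 27.3 FPM in the cirrhotic livers, with cirrhosis 5 highest (log2FC 4.29 ± 0.69, adjusted p = 0.00144). Its relative Loxl1 had 2.47, 2.26, 2.50 and 0.763 FPM in the controls and 28.8, 26.8, 43.6, 26.9 and 6.01 FPM in the cirrhotic livers (log2FC 3.72 ± 0.58, adjusted p = 0.00132), and Col8a2, a short-chain collagen, rose with overlap (log2FC 3.12 ± 0.61, adjusted p = 0.00381). Loxl4, another lysyl oxidase and named after its values were seen, fell (log2FC -2.47 ± 0.81, adjusted p = 0.0438). Col3a1 lost its call without control 2 or 5 (adjusted p up to 0.0685) and Loxl4 without any 1 control or cirrhosis 1, 3 or 4 (adjusted p up to 0.101). For collagens, 2 fell without any 1 control or cirrhosis 1, 3 or 4 and 1 fell with total counted reads.

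Among matrix proteases and inhibitors 12 of 26 tested genes rose and 0 fell by edgeR (0 by DESeq2 and 2 at an unadjusted p under 0.05), with a median log2FC of 0.92. Timp1, which inhibits matrix metalloproteinases, was at 1.81, 1.91, 4.33 and 0.954 FPM in the controls and 14.03, 7.39, 29.3, 18.6 and 6.01 FPM in the cirrhotic livers. Groups did not overlap (log2FC 2.74 ± 0.62, adjusted p = 0.00824). Mmp12, the elastase of macrophages, had 0.362, 1.04, 0.0610 and 0.127 FPM in the controls and 15.6, 18.5, 38.7, 16.7 and 2.26 FPM in the cirrhotic livers, also without overlap (log2FC 5.48 ± 0.82, adjusted p = 0.00116). Mmp23 (log2FC 3.08 ± 0.63, adjusted p = 0.00486) and Adam8, a protease of leukocytes (log2FC 2.91 ± 0.61, adjusted p = 0.00589), rose, as did Plat of the same list.

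Proteoglycans and matricellular proteins had 18 of 30 tested genes higher and 1 lower, with a median log2FC of 1.49. Ccn2, a matrix protein induced by TGF-beta, was at 4.58, 6.88, 4.58 and 4.32 FPM in the controls and 94.5, 45.7, 85.0, 385 and 19.6 FPM in the cirrhotic livers. The cirrhotic livers all lay above the controls, and cirrhosis 4 was highest (log2FC 4.63 ± 0.97, adjusted p = 0.00589). Ltbp2, which binds microfibrils, had 0.724, 1.16, 1.28 and 0.827 FPM in the controls and 21.5, 9.06, 23.5, 7.23 and 2.32 FPM in the cirrhotic livers (log2FC 3.66 ± 0.55, adjusted p = 0.00116), without overlap. Fbln1, a glycoprotein of elastic fibres (log2FC 3.90 ± 0.59, adjusted p = 0.00116), and Spp1, osteopontin (log2FC 3.01 ± 0.66, adjusted p = 0.00716), rose, Spp1 with cirrhosis 5 among the controls. The fall was that of Fn1, fibronectin (log2FC -0.62 ± 0.20, adjusted p = 0.0425). Fn1 lost its call without control 3, 4 or 5 or any 1 of cirrhosis 1 to 4 (adjusted p up to 0.133). For matricellular genes, 0 fell without control 3, 4 or 5 or any 1 of cirrhosis 1 to 4 and 0 fell with total counted reads.

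Integrin and laminin genes had 11 of 24 tested genes higher and 2 lower, with a median log2FC of 0.73. Itgb6, the integrin subunit of epithelia that activates latent TGF-beta, was at 0.784, 0.0578, 0.366 and 0.509 FPM in the controls and 4.94, 6.28, 5.18, 4.46 and 4.28 FPM in the cirrhotic livers. No overlap was seen between groups and cirrhosis 5 lay near the others (log2FC 3.54 ± 0.59, adjusted p = 0.00182). Lama5, the laminin chain of duct and vessel basement membranes, had 2.77, 2.08, 3.05 and 1.72 FPM in the controls and 23.1, 21.7, 22.4, 22.7 and 6.90 FPM in the cirrhotic livers, also without overlap (log2FC 3.01 ± 0.49, adjusted p = 0.00155). Itga8, an integrin of stellate cells and myofibroblasts, rose (log2FC 3.72 ± 0.76, adjusted p = 0.00517). Itga1 (log2FC -1.34 ± 0.34, adjusted p = 0.0142) and Itgb3 (log2FC -1.75 ± 0.49, adjusted p = 0.0228), integrin subunits, fell. Itga1 lost its call without control 3 (adjusted p up to 0.0529) and Itgb3 without control 3 or 5 or cirrhosis 1 or 3 (adjusted p up to 0.0696). For integrins and laminins, 0 or 1 fell without control 3 or 5 or cirrhosis 1 or 3.

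Most myofibroblast genes rose, with 13 of 17 tested genes higher and 1 lower and a median log2FC of 1.89. They took 0.0490 to 0.0734% of counted reads in the controls and 0.0693 to 0.141% in the cirrhotic livers. Acta2, smooth muscle actin, was at 2.53, 2.89, 3.66 and 1.46 FPM in the controls and 28.3, 19.3, 30.0, 14.6 and 2.26 FPM in the cirrhotic livers. Cirrhosis 1 to 4 lay above all controls and cirrhosis 5 among them (log2FC 2.84 ± 0.78, adjusted p = 0.0219). Mgp, which inhibits calcification, had 7.30, 16.5, 12.0 and 7.95 FPM in the controls and 243, 175, 315, 244 and 45.8 FPM in the cirrhotic livers, without overlap (log2FC 4.23 ± 0.59, adjusted p = 0.000805). Thy1, a surface protein of portal fibroblasts, rose (log2FC 5.11 ± 1.16, adjusted p = 0.00871). Pdgfrb, the growth factor receptor of stellate cells, was at 20.1, 28.9, 46.3 and 39.2 FPM in the controls and 66.3, 60.3, 62.3, 41.2 and 33.1 FPM in the cirrhotic livers and did not pass (log2FC 0.65 ± 0.26, adjusted p = 0.0814). The fall was that of Dpt, dermatopontin (log2FC -0.82 ± 0.27, adjusted p = 0.0424). Acta2 lost its call without control 2, 3 or 5 (adjusted p up to 0.0710) and Dpt without control 3, 4 or 5 or any 1 of cirrhosis 1 to 4 (adjusted p up to 0.101). For myofibroblast genes, 0 fell without control 3, 4 or 5 or any 1 of cirrhosis 1 to 4 and 0 fell with total counted reads.

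Genes of quiescent stellate cells split, with 3 of 11 tested genes higher and 3 lower and a median log2FC of -0.75. Colec10, a secreted collectin, was at 31.6, 34.1, 34.3 and 30.3 FPM in the controls and 7.04, 2.00, 11.3, 2.67 and 14.8 FPM in the cirrhotic livers. Every cirrhotic liver lay below every control (log2FC -2.11 ± 0.54, adjusted p = 0.0149). Ecm1, which keeps TGF-beta latent, fell as well (log2FC -1.57 ± 0.35, adjusted p = 0.00801). Des, the filament protein desmin that stellate cells keep on activation, had 2.65, 3.12, 3.24 and 1.91 FPM in the controls and 23.0, 7.88, 20.7, 11.8 and 4.23 FPM in the cirrhotic livers, without overlap (log2FC 2.31 ± 0.48, adjusted p = 0.00589), and Nes, nestin, rose too (log2FC 2.94 ± 0.59, adjusted p = 0.00475). Lrat, which stores retinol as ester, was at 17.1, 12.3, 18.1 and 20.2 FPM in the controls and 5.82, 2.49, 3.88, 13.3 and 14.1 FPM in the cirrhotic livers and did not pass (log2FC -1.09 ± 0.49, adjusted p = 0.118). For quiescent stellate genes, 5 fell without cirrhosis 5.

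Within TGF-beta signalling the ligand and its carriers rose, with 11 of 26 tested genes higher and 0 lower by edgeR (4 by DESeq2 and 6 at an unadjusted p under 0.05) and a median log2FC of 0.11. Tgfb1, the main fibrogenic ligand, was at 10.5, 5.78, 9.46 and 6.55 FPM in the controls and 40.8, 20.3, 47.7, 27.7 and 11.8 FPM in the cirrhotic livers. There was no overlap between groups (log2FC 1.88 ± 0.41, adjusted p = 0.00728). Ltbp1, which holds the latent ligand in matrix, rose (log2FC 2.15 ± 0.37, adjusted p = 0.00207) together with Ltbp2. Fst, follistatin, which traps activins, had 0.0603, 0, 0 and 0 FPM in the controls and 3.22, 1.02, 2.64, 2.051 and 0.298 FPM in the cirrhotic livers, detected in 1 control (adjusted p = 0.00429). For TGF-beta signalling, 7 rose without control 5 and 1 to 6 fell without control 2 or cirrhosis 2 or 5.

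Among growth factors of vessels and stellate cells 5 of 22 tested genes rose and 2 fell, with a median log2FC of 0.52. Pdgfb, which drives stellate cell division, was at 0.241, 0.752, 0.733 and 0.382 FPM in the controls and 3.88, 7.43, 4.58, 6.10 and 1.13 FPM in the cirrhotic livers. Vegfd, a lymphatic growth factor, had 0.302, 0.752, 0.916 and 0.572 FPM in the controls and 7.38, 6.53, 9.82, 8.00 and 2.38 FPM in the cirrhotic livers. Neither overlapped between groups (log2FC 3.12 ± 0.58, adjusted p = 0.00319 and log2FC 3.41 ± 0.49, adjusted p = 0.000957), and Pdgfa (log2FC 1.87 ± 0.38, adjusted p = 0.00459) and Pdgfd (log2FC 2.37 ± 0.63, adjusted p = 0.0183) rose. The falls were those of Vegfa and Kdr. Vegfa, the main growth factor of vessels, was at 546, 331, 482 and 433 FPM in the controls and 138, 199, 97.6, 172 and 307 FPM in the cirrhotic livers. Kdr, its receptor on endothelium, had 47.3, 40.5, 52.2 and 71.7 FPM in the controls and 36.1, 18.3, 19.96, 23.5 and 25.7 FPM in the cirrhotic livers. Both lay below the controls in every cirrhotic liver (log2FC -1.29 ± 0.31, adjusted p = 0.0118 and log2FC -1.10 ± 0.24, adjusted p = 0.00754), and these calls held without any 1 animal. Pdgfd lost its call without control 3 or 5 (adjusted p up to 0.0635). For these growth factors, 9 rose without cirrhosis 5 and 8 rose with total counted reads.

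For vasoactive genes 4 of 22 tested genes rose and 3 fell, with a median log2FC of -0.02. Edn1, the vasoconstrictor endothelin, was at 0.121, 0.116, 0.794 and 0.382 FPM in the controls and 6.38, 14.1, 6.90, 7.49 and 0.476 FPM in the cirrhotic livers. Cirrhosis 1 to 4 lay above all controls and cirrhosis 5 among them (log2FC 4.31 ± 0.91, adjusted p = 0.00625). Ednra, an endothelin receptor, had 1.15, 0.636, 1.22 and 1.27 FPM in the controls and 2.39, 3.88, 5.56, 1.54 and 2.14 FPM in the cirrhotic livers, without overlap. It (log2FC 1.53 ± 0.41, adjusted p = 0.0189) and Tbxas1, thromboxane synthase (log2FC 1.52 ± 0.46, adjusted p = 0.0331), rose. The angiotensin receptor Agtr1a (log2FC -1.45 ± 0.28, adjusted p = 0.00371), the vasopressin receptor Avpr1a (log2FC -1.46 ± 0.37, adjusted p = 0.0152) and Nos1, a nitric oxide synthase (log2FC -1.51 ± 0.50, adjusted p = 0.0446), fell. Ednra lost its call without control 3 or cirrhosis 3 (adjusted p up to 0.0625), Tbxas1 without any 1 control or cirrhosis 1 or 3 (adjusted p up to 0.0893), Avpr1a without control 3 (adjusted p up to 0.0543) and Nos1 without any 1 control or cirrhosis 1, 3 or 4 (adjusted p up to 0.178). For vasoactive genes, 2 rose without control 3 or cirrhosis 3 and 1 fell without control 3.

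Most bile duct and ductular genes rose, with 14 of 16 tested genes higher and 0 lower by edgeR, by DESeq2 or at an unadjusted p under 0.05 and a median log2FC of 2.99. They took 0.00535 to 0.00719% of counted reads in the controls and 0.0142 to 0.0452% in the cirrhotic livers. Sox9, the transcription factor of duct and progenitor cells, was at 0.724, 0.289, 0.183 and 0.127 FPM in the controls and 6.16, 7.10, 8.199, 5.08 and 4.23 FPM in the cirrhotic livers. Every cirrhotic liver lay above every control, replicate 5 included (log2FC 4.18 ± 0.52, adjusted p = 0.000523). Epcam, an epithelial adhesion molecule, had 15.2, 13.1, 13.7 and 10.6 FPM in the controls and 52.8, 63.4, 56.4, 73.3 and 28.9 FPM in the cirrhotic livers, also without overlap (log2FC 2.06 ± 0.27, adjusted p = 0.000528). Krt19, a keratin of duct cells, was at 2.051, 1.04, 2.99 and 0.954 FPM in the controls and 16.7, 10.4, 7.77, 5.13 and 2.38 FPM in the cirrhotic livers, with cirrhosis 5 among the controls (log2FC 2.26 ± 0.61, adjusted p = 0.0203). Ggt1, a peptidase that duct cells and fetal hepatocytes carry (log2FC 4.22 ± 0.99, adjusted p = 0.0102), Cldn7, a tight junction protein (log2FC 4.03 ± 0.63, adjusted p = 0.00132), and Prom1, a progenitor marker (log2FC 3.88 ± 0.66, adjusted p = 0.00190), rose. Krt19 lost its call without control 3 or 5 or cirrhosis 1 (adjusted p up to 0.0683).

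Oncofetal genes were mixed, with 4 of 10 tested genes higher and 1 lower and a median log2FC of 0.21. Dlk1, a marker of fetal hepatoblasts, was at 0, 0, 0 and 0 FPM in the controls and 0.499, 3.84, 1.46, 1.79 and 1.13 FPM in the cirrhotic livers. It had 0 counts in every control and was detected in every cirrhotic liver (adjusted p = 0.00459). Gpc3, a glypican of fetal and malignant liver, had 1.57, 1.33, 2.38 and 1.72 FPM in the controls and 9.65, 10.2, 10.1, 9.28 and 1.25 FPM in the cirrhotic livers, with cirrhosis 5 below the controls (log2FC 2.21 ± 0.65, adjusted p = 0.0288). Cd24 rose (log2FC 3.36 ± 0.57, adjusted p = 0.00184), and Igf2bp3, an RNA-binding protein of fetal tissue, fell (log2FC -2.40 ± 0.82, adjusted p = 0.0499). Alpha-fetoprotein, Afp, was at 29.3, 20.8, 23.5 and 18.1 FPM in the controls and 41.5, 30.1, 43.6, 20.6 and 32.4 FPM in the cirrhotic livers and did not pass (log2FC 0.55 ± 0.24, adjusted p = 0.112). Gpc3 lost its call without any 1 control or cirrhosis 1, 3 or 4 (adjusted p up to 0.0783) and Igf2bp3 without control 3, 4 or 5 or any 1 of cirrhosis 1 to 4 (adjusted p up to 0.130). For oncofetal genes, 2 rose without control 5, 0 fell without control 3, 4 or 5 or any 1 of cirrhosis 1 to 4, 2 fell without cirrhosis 5 and 0 fell with total counted reads.

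Most genes of the open sinusoids fell. Of sinusoidal endothelial genes 9 of 16 tested genes fell and 0 rose by edgeR, by DESeq2 or at an unadjusted p under 0.05, with a median log2FC of -0.98. Fcgr2b, the receptor by which sinusoids clear immune complexes, was at 66.2, 57.5, 62.6 and 67.3 FPM in the controls and 36.6, 14.1, 21.5, 12.97 and 25.3 FPM in the cirrhotic livers. The groups did not overlap (log2FC -1.52 ± 0.26, adjusted p = 0.00194). Oit3 had 16.5, 16.1, 16.9 and 17.6 FPM in the controls and 7.27, 4.08, 9.87, 6.26 and 6.90 FPM in the cirrhotic livers, likewise (log2FC -1.29 ± 0.23, adjusted p = 0.00262), and Ehd3, a membrane trafficking protein, fell (log2FC -1.31 ± 0.20, adjusted p = 0.00119). Rspo3, by which endothelium of the central vein sustains pericentral gene expression, fell too (log2FC -1.29 ± 0.39, adjusted p = 0.0311). Stab2, the scavenger receptor for hyaluronan, was at 28.2, 25.6, 29.4 and 29.4 FPM in the controls and 27.7, 2.16, 22.7, 6.10 and 12.1 FPM in the cirrhotic livers, with cirrhosis 1 inside the control range (log2FC -0.99 ± 0.50, adjusted p = 0.159), and Lyve1 did not pass either (log2FC -0.49 ± 0.36, adjusted p = 0.328). Rspo3 lost its call without control 3, 4 or 5 or cirrhosis 1, 3 or 4 (adjusted p up to 0.0904). For sinusoidal endothelium, 5 fell without control 5 or cirrhosis 4.

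Genes of continuous endothelium rose in part, with 3 of 14 tested genes higher and 0 lower by edgeR, by DESeq2 or at an unadjusted p under 0.05 and a median log2FC of 0.69. Vwf, von Willebrand factor, was at 9.65, 17.1, 11.5 and 12.5 FPM in the controls and 91.7, 94.0, 133, 74.002 and 16.9 FPM in the cirrhotic livers. Cirrhosis 1 to 4 lay well above the controls and cirrhosis 5 just under the highest of them (log2FC 2.69 ± 0.54, adjusted p = 0.00439). Aplnr, the apelin receptor of growing vessels, had 0, 0.173, 0.122 and 0.127 FPM in the controls and 5.71, 10.0, 8.31, 7.33 and 0.0595 FPM in the cirrhotic livers, again with cirrhosis 5 among the controls (log2FC 5.80 ± 1.38, adjusted p = 0.0109). Plvap, of fenestral diaphragms, rose (log2FC 1.61 ± 0.40, adjusted p = 0.0129), and Cd34 did not pass (log2FC 1.72 ± 0.62, adjusted p = 0.0604). For continuous endothelium, 6 rose without cirrhosis 5 and 5 rose with total counted reads.

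Kupffer cell genes held few calls. Of Kupffer cell genes 1 of 12 tested genes fell and 0 rose by edgeR (2 by DESeq2 and 5 at an unadjusted p under 0.05), with a median log2FC of 0.45. Clec4f, the lectin particular to Kupffer cells, was at 169, 108, 185 and 105 FPM in the controls and 133, 8.08, 50.8, 27.7 and 113 FPM in the cirrhotic livers. Cirrhosis 2 to 4 lay below the controls and replicates 1 and 5 within them (log2FC -1.09 ± 0.57, adjusted p = 0.172). Marco, a scavenger receptor, did not pass (log2FC -0.64 ± 0.73, adjusted p = 0.532). Folr2, a folate receptor (log2FC 1.01 ± 0.39, adjusted p = 0.0729), and Cd68, a lysosomal protein of macrophages (log2FC 0.74 ± 0.26, adjusted p = 0.0573), both named after their values were seen, did not pass either, and these were the members that DESeq2 placed higher. The list took 0.0345 to 0.0613% of counted reads in the controls and 0.0301 to 0.0944% in the cirrhotic livers. Cd163, which takes up haemoglobin, had 22.8, 18.1, 29.2 and 23.5 FPM in the controls and 14.9, 4.24, 7.01, 10.9 and 13.3 FPM in the cirrhotic livers, without overlap (log2FC -1.22 ± 0.31, adjusted p = 0.0163). Cd163 lost its call without control 4 (adjusted p up to 0.0501). For Kupffer cell genes, 1 to 3 rose without cirrhosis 2 or 5, 0 fell without control 4, 2 fell without cirrhosis 5 and 4 rose with total counted reads.

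Genes of monocyte-derived and scar-associated macrophages had 9 of 11 tested genes higher and 0 lower by edgeR, by DESeq2 or at an unadjusted p under 0.05, with a median log2FC of 3.11. Trem2, a lipid receptor of scar-associated macrophages, was at 0, 0.0578, 0 and 0 FPM in the controls and 9.10, 6.49, 15.9, 7.49 and 1.19 FPM in the cirrhotic livers. It was detected in 1 control and in every cirrhotic liver (adjusted p = 0.000458). Gpnmb, a lysosomal glycoprotein of the same cells, had 3.02, 6.94, 7.51 and 6.55 FPM in the controls and 61.4, 112, 66.0, 59.7 and 17.6 FPM in the cirrhotic livers, without overlap (log2FC 3.40 ± 0.44, adjusted p = 0.000528). Cd9, a tetraspanin, rose (log2FC 3.61 ± 0.69, adjusted p = 0.00366), as did Mmp12.

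T lymphocyte genes rose at low levels. For T and NK lymphocytes 8 of 15 tested genes rose and 0 fell by edgeR, by DESeq2 or at an unadjusted p under 0.05, with a median log2FC of 1.40. Cd3e, of the T cell receptor complex, was at 0.121, 0.173, 0.244 and 0 FPM in the controls and 1.77, 1.26, 0.755, 1.18 and 0.655 FPM in the cirrhotic livers. Groups did not overlap (log2FC 2.99 ± 0.72, adjusted p = 0.0116). Cd2, an adhesion molecule of T cells (log2FC 3.13 ± 0.54, adjusted p = 0.00204), Cd3d (log2FC 2.68 ± 0.85, adjusted p = 0.0385) and Cd3g (log2FC 2.39 ± 0.66, adjusted p = 0.0223), of the receptor complex, rose. For B lymphocytes and plasma cells 1 of 12 tested genes rose and 0 fell by edgeR, by DESeq2 or at an unadjusted p under 0.05, with a median log2FC of 1.17, and the rise was that of Fcrla (log2FC 1.91 ± 0.45, adjusted p = 0.0104), while Cd79a, of the B cell receptor, did not pass (log2FC 0.67 ± 0.45, adjusted p = 0.281). Cd3d lost its call without any 1 control (adjusted p up to 0.108) and Cd3g without control 2, 3 or 5 or cirrhosis 3 (adjusted p up to 0.0727). For T and NK lymphocytes, 2 to 5 rose without any 1 control or cirrhosis 1 or 3.

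Neutrophil genes had 3 of 5 tested genes higher and 0 lower by edgeR, by DESeq2 or at an unadjusted p under 0.05, with a median log2FC of 3.21 (3.17 with the gene at 0 counts in a group held at its bound), and 6 of the 11 listed were under the filter on low counts. S100a8, of the calprotectin pair, was at 0.121, 0.231, 0.183 and 0.254 FPM in the controls and 1.66, 0.326, 2.70, 7.28 and 2.26 FPM in the cirrhotic livers. No overlap was seen between groups, with cirrhosis 4 highest (log2FC 3.80 ± 0.98, adjusted p = 0.0159), and S100a9 (log2FC 3.21 ± 0.90, adjusted p = 0.0233) and Csf3r (log2FC 1.84 ± 0.59, adjusted p = 0.0404), a growth factor receptor of neutrophils, rose. S100a9 lost its call without control 3, 4 or 5 or cirrhosis 4 (adjusted p up to 0.0737) and Csf3r without any 1 control or cirrhosis 3 or 4 (adjusted p up to 0.109). For neutrophil genes, 1 rose without control 3, 4 or 5 or cirrhosis 4.

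Some mast cell genes were high in 4 of the 5 cirrhotic livers, with 6 of 9 tested genes higher and 0 lower by edgeR, by DESeq2 or at an unadjusted p under 0.05 and a median log2FC of 4.55 (4.48 with the gene at 0 counts in a group held at its bound). The called members had control means under 1 FPM. Kit (log2FC 0.05 ± 0.35, adjusted p = 0.934), Gata2 (log2FC 0.24 ± 0.43, adjusted p = 0.699) and Hdc (log2FC 0.60 ± 0.55, adjusted p = 0.437) did not pass. Those members had control means of 3.92, 2.14 and 3.41 FPM and were named after their values were seen. Cma1, chymase, was at 0.121, 0, 0 and 0.0636 FPM in the controls and 14.3, 9.38, 11.8, 8.87 and 0.119 FPM in the cirrhotic livers. Tpsb2, a tryptase, had 0.181, 0.116, 0.0610 and 0.700 FPM in the controls and 8.43, 8.61, 11.9, 7.23 and 0.417 FPM in the cirrhotic livers. In both, cirrhosis 1 to 4 lay far above the controls and cirrhosis 5 within their range (adjusted p = 0.00160 for Cma1, and log2FC 4.78 ± 0.99, adjusted p = 0.00532 for Tpsb2). Of the IgE receptor, Ms4a2 rose (log2FC 4.55 ± 0.92, adjusted p = 0.00487), and Fcer1a was called at 0.121, 0, 0 and 0.0636 FPM in the controls and 2.22, 2.20, 0.593, 1.54 and 0 FPM in the cirrhotic livers (adjusted p = 0.0144).

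Markers of tissue next to the liver or of blood were checked in the same way. For mesothelium 1 of 6 tested genes rose and 0 fell by edgeR, by DESeq2 or at an unadjusted p under 0.05, with a median log2FC of 1.11. Msln, mesothelin, was at 3.80, 3.53, 7.45 and 4.13 FPM in the controls and 66.8, 48.0, 99.1, 58.0 and 23.0 FPM in the cirrhotic livers, without overlap (log2FC 3.64 ± 0.53, adjusted p = 0.000950), and no other mesothelial gene passed. For erythroid genes 1 of 5 tested genes rose and 0 fell by edgeR, by DESeq2 or at an unadjusted p under 0.05, with a median log2FC of 0.54, and Epb42 was the rise (log2FC 2.20 ± 0.72, adjusted p = 0.0432). For pancreas and gut 2 of 4 tested genes rose and 0 fell by edgeR (0 by DESeq2 and 1 at an unadjusted p under 0.05), with a median log2FC of 1.16, and the calls were Fabp2, an intestinal fatty acid binding protein (log2FC 2.21 ± 0.55, adjusted p = 0.0132), and Vil1, villin of brush borders and bile ducts, at 0, 0, 0 and 0.0636 FPM in the controls and 1.94, 1.51, 0.647, 1.33 and 0.655 FPM in the cirrhotic livers (adjusted p = 0.00249). The pancreatic enzyme gene Pnlip, the erythroid Rhag and the mesothelial keratin Krt5 had 0 counts in all 9 livers. Cela1, an elastase gene of the pancreas and gut list, was named after its values were seen. It stood at 122, 59.6, 81.8 and 64.3 FPM in the controls. In the cirrhotic livers it had 52.9, 29.9, 44.0, 5.28 and 5.00 FPM, lower without overlap, and did not pass (log2FC -1.58 ± 0.70, adjusted p = 0.113). The mesothelial list took 0.00141 to 0.00241% of counted reads in the controls and 0.00580 to 0.0117% in the cirrhotic livers, the erythroid list 0.00149 to 0.00171% of counted reads in the controls and 0.00258 to 0.00304% in the cirrhotic livers and the pancreas and gut list 0.00525 to 0.0108% of counted reads in the controls and 0.00093 to 0.00612% in the cirrhotic livers, and the part of such tissue in other results was not tested. Epb42 lost its call without any 1 liver but cirrhosis 5 (adjusted p up to 0.120). For erythroid genes, 0 rose without any 1 liver but cirrhosis 5, 2 rose without cirrhosis 5 and 2 rose with total counted reads.

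Several chemokines that draw leukocytes rose. In this list 12 of 35 tested genes rose and 2 fell, with a median log2FC of 1.14. Ccl21, the lymphatic chemokine for T cells and dendritic cells, was at 10.4, 3.87, 9.34 and 4.07 FPM in the controls and 369, 249, 566, 383 and 31.5 FPM in the cirrhotic livers. Cirrhotic livers were all above the controls (log2FC 5.53 ± 1.01, adjusted p = 0.00279), and close paralogues can share its reads. Cxcl6, a neutrophil chemokine, had 0, 0.116, 0 and 0 FPM in the controls and 5.05, 10.9, 6.31, 7.95 and 1.84 FPM in the cirrhotic livers and was detected in 1 control (adjusted p = 0.00128). Ccl2, which recruits monocytes, was at 0, 0.231, 0.183 and 0.382 FPM in the controls and 1.61, 3.10, 2.75, 4.26 and 1.90 FPM in the cirrhotic livers (log2FC 3.74 ± 0.86, adjusted p = 0.00919), without overlap, and Cx3cl1, a membrane-bound chemokine of epithelia and endothelia, rose (log2FC 3.67 ± 0.47, adjusted p = 0.000528). The interferon-induced chemokine Cxcl11 (log2FC -0.95 ± 0.23, adjusted p = 0.0132) and Ackr4, a scavenging chemokine receptor (log2FC -1.13 ± 0.33, adjusted p = 0.0293), fell. Ackr4 lost its call without control 2, 3 or 5 or cirrhosis 2, 3 or 4 (adjusted p up to 0.0772). For chemokines, 7 rose without cirrhosis 4, 1 fell without control 2, 3 or 5 or cirrhosis 2, 3 or 4 and 1 fell with total counted reads.

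Few interferon-stimulated genes rose, with 2 of 30 tested genes higher and 0 lower by edgeR (2 by DESeq2 and 2 at an unadjusted p under 0.05) and a median log2FC of 0.77. Gbp5, a guanylate-binding protein, was at 1.33, 1.56, 2.38 and 1.21 FPM in the controls and 12.6, 12.5, 10.7, 12.9 and 5.71 FPM in the cirrhotic livers, without overlap (log2FC 2.74 ± 0.46, adjusted p = 0.00177), and Oasl, an antiviral synthetase-like protein, rose (log2FC 2.19 ± 0.56, adjusted p = 0.0149). Oasl lost its call without control 3 or 5 (adjusted p up to 0.0518). For interferon-stimulated genes, 1 rose without control 3 or 5, 4 rose without cirrhosis 5, 1 or 2 fell without control 2 or cirrhosis 5 and 5 rose with total counted reads.

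Most MHC class II genes rose, with 12 of 17 tested genes higher and 0 lower by edgeR, by DESeq2 or at an unadjusted p under 0.05 and a median log2FC of 2.17. They took 0.159 to 0.230% of counted reads in the controls and 0.310 to 0.466% in the cirrhotic livers. Cd74, the invariant chain that guards the class II groove, was at 97.9, 70.2, 131 and 64.7 FPM in the controls and 1043, 695, 1398, 701 and 355 FPM in the cirrhotic livers. Each cirrhotic liver was above each control, with cirrhosis 5 lowest (log2FC 3.20 ± 0.44, adjusted p = 0.000796). The class II chains RT1.Db1 (log2FC 3.18 ± 0.48, adjusted p = 0.00116) and RT1.Bb (log2FC 3.11 ± 0.48, adjusted p = 0.00130), and RT1.DMa, which loads peptide (log2FC 2.92 ± 0.50, adjusted p = 0.00204), rose without overlap.

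Many cell cycle genes rose. Division in adult liver is rare, and genes of the G2 and M phases are commonly held off by the DREAM complex through CHR elements (TTTGAA) in their promoters, which often lie near CCAAT boxes, the sites of NF-Y. In the cell cycle list 19 of 32 tested genes rose and 0 fell by edgeR, by DESeq2 or at an unadjusted p under 0.05, with a median log2FC of 2.03. As examples of promoters that carry both motifs, the 250 bases upstream of Cdk1 and Top2a, both named after their values were seen, are shown from RefSeq (build GRCr8), with capitals at each CCAAT or TTTGAA on either strand:
Cdk1 (chr20:19265043-19265292, + strand): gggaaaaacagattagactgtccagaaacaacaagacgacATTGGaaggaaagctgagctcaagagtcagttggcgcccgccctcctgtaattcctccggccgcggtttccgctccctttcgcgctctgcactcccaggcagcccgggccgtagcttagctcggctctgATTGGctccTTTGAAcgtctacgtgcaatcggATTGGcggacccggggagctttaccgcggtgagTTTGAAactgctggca
Top2a (chr10:84473094-84473343, - strand): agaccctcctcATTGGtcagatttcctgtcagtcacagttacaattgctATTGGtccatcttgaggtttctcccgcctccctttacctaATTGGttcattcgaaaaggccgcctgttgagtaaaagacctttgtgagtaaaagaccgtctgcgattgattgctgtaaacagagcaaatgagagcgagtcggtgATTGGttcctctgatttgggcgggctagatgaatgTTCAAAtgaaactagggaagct
Capitals mark 3 CCAAT boxes and 2 CHR elements in the window of Cdk1, and 4 and 1 in that of Top2a. CCAAT boxes occurred in 13 of 22 matched cell cycle promoters and in 34.0% of all 33469 RefSeq promoters of the same length. CHR elements occurred in 7 of 22 and in 5422 of all, and both together in 5 of 22 and in 5.87% of all. A match is a description of sequence only.

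Cdk1, the kinase that starts mitosis, was at 0.362, 0.694, 1.77 and 0.890 FPM in the controls and 10.5, 6.53, 12.24, 6.26 and 5.65 FPM in the cirrhotic livers. Top2a, which untangles DNA, had 0.663, 2.26, 1.59 and 1.46 FPM in the controls and 18.4, 10.9, 16.1, 7.59 and 7.38 FPM in the cirrhotic livers. Neither overlapped between groups (log2FC 3.14 ± 0.79, adjusted p = 0.0142 and log2FC 3.01 ± 0.71, adjusted p = 0.0104). Mki67, a marker of cycling cells, was at 2.71, 2.08, 5.01 and 1.21 FPM in the controls and 17.3, 13.7, 22.8, 12.3 and 11.01 FPM in the cirrhotic livers, with cirrhosis 5 below the other cirrhotic livers and above every control (log2FC 2.48 ± 0.61, adjusted p = 0.0133). The mitotic kinases Aurkb (log2FC 3.52 ± 0.87, adjusted p = 0.0135) and Plk1 (log2FC 3.23 ± 0.72, adjusted p = 0.00755) and the replication licensing factor Mcm5 (log2FC 3.22 ± 0.72, adjusted p = 0.00795) rose. Cdkn2a, which encodes inhibitors of the cycle and marks senescent cells, stood at 0.121, 0, 0.0610 and 0.0636 FPM in the controls and 0.943, 1.06, 1.35, 2.72 and 0.595 FPM in the cirrhotic livers and rose as well (log2FC 4.31 ± 0.95, adjusted p = 0.00737). For cell cycle genes, 12 rose without control 5.

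Annexins, S100 proteins and cytoskeletal genes, which mesenchymal, duct and immune cells use more than hepatocytes, had 21 of 35 tested genes higher and 0 lower by edgeR, by DESeq2 or at an unadjusted p under 0.05, with a median log2FC of 1.32. Anxa2, a membrane-binding annexin, was at 11.4, 9.60, 9.65 and 7.44 FPM in the controls and 105, 67.1, 166, 135 and 21.5 FPM in the cirrhotic livers. The cirrhotic livers all lay above the controls, replicate 5 by the smallest margin (log2FC 3.38 ± 0.58, adjusted p = 0.00209). The calcium-binding proteins S100a4 (log2FC 3.51 ± 0.84, adjusted p = 0.0116), S100a11 (log2FC 3.45 ± 0.55, adjusted p = 0.00135) and S100a6 (log2FC 3.29 ± 0.62, adjusted p = 0.00341) rose without overlap.

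**Figure D4:**
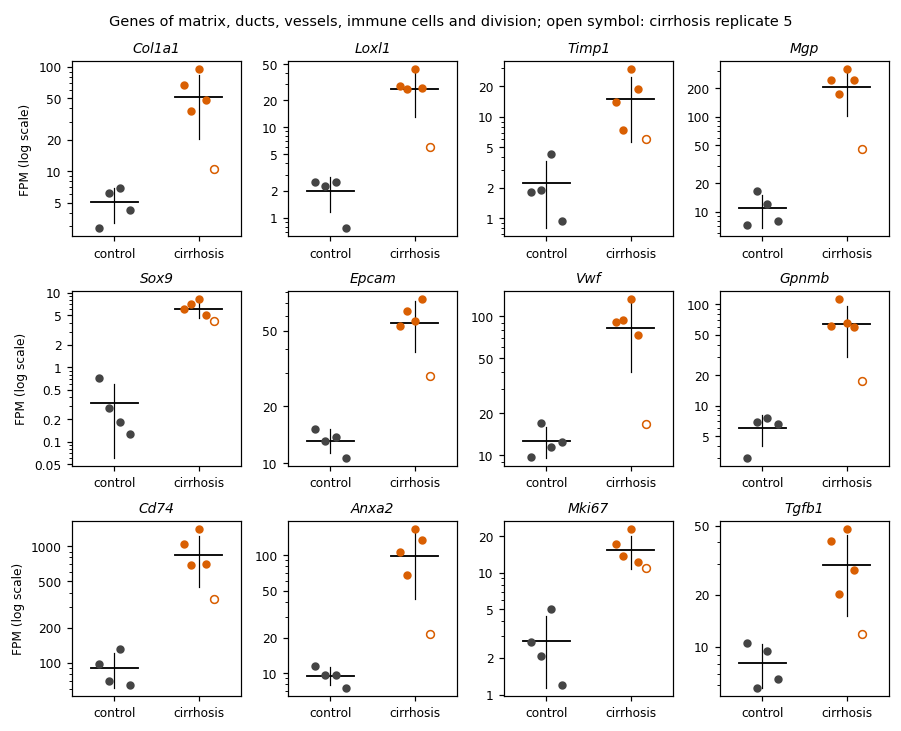
FPM (log axis) of 12 genes of matrix, ducts, vessels, immune cells and division in 4 control (grey) and 5 cirrhotic (orange) livers; the open symbol is cirrhosis 5, horizontal lines are means and vertical bars 1 SD either way. All except Vwf separate the groups, and cirrhosis 5 is the lowest cirrhotic liver in each panel.

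Stress and timing genes held few calls. For NRF2 targets, the genes of the oxidative stress response, 2 of 17 tested genes rose and 0 fell by edgeR, by DESeq2 or at an unadjusted p under 0.05, with a median log2FC of 0.33, and the rises were Gstp1 and Ephx1. For ER stress 2 of 20 tested genes rose and 1 fell, with a median log2FC of -0.22. Asns, asparagine synthetase, was at 0.302, 0.752, 1.10 and 0.827 FPM in the controls and 2.83, 1.67, 1.13, 19.7 and 22.9 FPM in the cirrhotic livers. It was highest in cirrhosis 4 and 5, the animals of the other title prefix (log2FC 3.68 ± 1.14, adjusted p = 0.0350). Atf3, a stress-response factor, rose (log2FC 1.82 ± 0.57, adjusted p = 0.0370) and Ern1, the sensor IRE1, fell (log2FC -0.91 ± 0.25, adjusted p = 0.0220). For the circadian clock 1 of 18 tested genes fell and 0 rose by edgeR (0 by DESeq2 and 1 at an unadjusted p under 0.05), with a median log2FC of -0.43, and Clock fell from 49.2, 41.9, 49.1 and 50.8 FPM in the controls to 19.1, 33.1, 20.5, 18.7 and 40.5 FPM in the cirrhotic livers (log2FC -0.86 ± 0.23, adjusted p = 0.0213). The time of day of sampling was not given in the sources used here. Asns lost its call without any 1 control or cirrhosis 4 (adjusted p up to 0.0869), Atf3 without control 2, 3 or 4 or cirrhosis 1, 3 or 4 (adjusted p up to 0.101), Ern1 without control 2 or 3 or cirrhosis 1 or 3 (adjusted p up to 0.0534) and Clock without control 5 or cirrhosis 1, 3 or 4 (adjusted p up to 0.0601). For NRF2 targets, 0 or 1 rose without any 1 control or cirrhosis 1, 3 or 4. For ER stress genes, 0 or 1 rose without any 1 control or cirrhosis 1, 3 or 4, 0 fell without control 2 or 3 or cirrhosis 1 or 3, 2 to 5 fell without cirrhosis 2 or 5, 4 rose with total counted reads and 0 fell with total counted reads. For clock genes, 1 rose without control 3, 0 fell without control 5 or cirrhosis 1, 3 or 4, 3 fell without cirrhosis 5 and 0 fell with total counted reads.

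Retinoid handling changed at its enzymes, with 3 of 14 tested genes higher and 2 lower and a median log2FC of 0.17. Cyp26a1, which degrades retinoic acid and is induced by it, was at 0.181, 0.289, 2.56 and 2.61 FPM in the controls and 26.5, 30.7, 27.5, 14.5 and 8.09 FPM in the cirrhotic livers. Every cirrhotic liver lay above every control (log2FC 3.93 ± 0.66, adjusted p = 0.00182). Aldh1a1, which makes retinoic acid, had 56.2, 57.1, 39.6 and 62.9 FPM in the controls and 126, 176, 110.5, 421 and 212 FPM in the cirrhotic livers, without overlap (log2FC 1.95 ± 0.33, adjusted p = 0.00191), and its relative Aldh1a3 rose (log2FC 1.36 ± 0.26, adjusted p = 0.00374). Rdh10, which oxidises retinol, fell (log2FC -1.11 ± 0.20, adjusted p = 0.00292). For retinoid genes, 1 fell without control 5 and 1 fell with total counted reads.

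Notch, Wnt and Hedgehog genes had 7 of 23 tested genes higher and 2 lower, with a median log2FC of 0.16. Wnt4, a Wnt ligand, was at 1.45, 0.752, 2.81 and 0.827 FPM in the controls and 16.197, 13.6, 17.2, 9.95 and 3.51 FPM in the cirrhotic livers, without overlap (log2FC 3.05 ± 0.50, adjusted p = 0.00167). The Wnt antagonists Sfrp1 (log2FC 3.05 ± 0.64, adjusted p = 0.00589) and Dkk3 (log2FC 2.56 ± 0.64, adjusted p = 0.0139) and the Notch effector Heyl (log2FC 2.10 ± 0.41, adjusted p = 0.00400) rose, and Rspo3 was among the falls. For these pathways, 4 rose without control 5, 1 fell without any 1 control or cirrhosis 1, 3 or 4 and 0 fell with total counted reads.

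Others of the largest changes were in genes outside the lists. Bok, of the BCL2 family, was at 1.57, 1.04, 0.916 and 1.27 FPM in the controls and 65.9, 71.8, 80.3, 70.6 and 10.9 FPM in the cirrhotic livers. Kif12, a kinesin of epithelial cells, had 3.32, 3.01, 2.14 and 1.78 FPM in the controls and 60.1, 62.1, 57.1, 59.1 and 18.2 FPM in the cirrhotic livers. Both rose without overlap (log2FC 5.64 ± 0.68, adjusted p = 0.000501 and log2FC 4.32 ± 0.50, adjusted p = 0.000458), and cirrhosis 5 was lowest of the cirrhotic livers in each. Serpinb1a, a protease inhibitor (log2FC 5.44 ± 0.67, adjusted p = 0.000515), Gstm3l, a glutathione transferase (log2FC 4.39 ± 0.56, adjusted p = 0.000528), and Ubd, a ubiquitin-like modifier induced by interferon (log2FC 4.89 ± 1.48, adjusted p = 0.0326), rose too. Ubd lost its call without any 1 control or cirrhosis 3 or 4 (adjusted p up to 0.0952).

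Of the largest falls, Stac3, a gene best known from muscle, was at 652, 464, 549 and 518 FPM in the controls and 2.77, 0.0816, 0.432, 0.154 and 56.1 FPM in the cirrhotic livers. Aox3, an aldehyde oxidase, had 109, 95.6, 90.9 and 111 FPM in the controls and 0.222, 0.204, 0.108, 1.23 and 26.1 FPM in the cirrhotic livers. In both, cirrhosis 1 to 4 were far below the controls and cirrhosis 5 was nearer to the controls, although below them (log2FC -5.52 ± 1.80, adjusted p = 0.0429 and log2FC -4.20 ± 1.30, adjusted p = 0.0354). Slc13a2, a citrate carrier, stood at 32.9, 17.8, 19.2 and 23.7 FPM in the controls and 4.77, 3.18, 2.43, 1.03 and 2.86 FPM in the cirrhotic livers, with cirrhosis 5 within the other cirrhotic livers (log2FC -3.03 ± 0.75, adjusted p = 0.0133). Olr35, annotated as an olfactory receptor (log2FC -3.12 ± 0.45, adjusted p = 0.000950), Arhgef37 (log2FC -2.90 ± 0.51, adjusted p = 0.00234), Plekhb1 (log2FC -2.81 ± 0.48, adjusted p = 0.00192) and X5330417C22Rik (log2FC -2.69 ± 0.57, adjusted p = 0.00589) fell, and these calls held without any 1 animal. Stac3 and Aox3 lost their calls without any 1 liver but cirrhosis 5 (adjusted p up to 0.0912 and 0.0763).

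Across the lists, cirrhosis 5 moved with the other cirrhotic livers in some functions and with the controls in others. The level of a list in a liver is the mean log2(FPM + 1) of its tested members minus that of the controls. In 41 lists cirrhosis 1 to 4 all lay outside the controls, and in these replicate 5 lay within the controls in 6 and within the range of replicates 1 to 4 in 7. Sinusoidal endothelium was -1.46 to -0.48 in cirrhosis 1 to 4 and -0.81 in replicate 5. Amino acid catabolism was -1.28 to -0.36 in cirrhosis 1 to 4 and -0.72 in replicate 5. In these lists and in urea cycle, bile acid synthesis and mesothelium genes the fifth animal was inside the range of the others. Pericentral genes were -1.15 to -0.30 in cirrhosis 1 to 4 and -0.02 in replicate 5. Male-biased genes were -5.58 to -3.94 in cirrhosis 1 to 4 and -0.59 in replicate 5. Mast cell genes were 1.24 to 1.88 in cirrhosis 1 to 4 and -0.04 in replicate 5. Periportal genes were -1.07 to 0.03 in cirrhosis 1 to 4 and -1.12 in replicate 5, and female-biased genes -1.18 to -0.02 in cirrhosis 1 to 4 and -1.998 in replicate 5. For pericentral and mast cell genes replicate 5 lay within the controls, and for male-biased genes between the groups. Cell cycle genes were 1.11 to 1.59 in cirrhosis 1 to 4 and 0.82 in replicate 5, and bile duct genes 1.93 to 2.39 in cirrhosis 1 to 4 and 0.98 in replicate 5. With 1 such animal these are values of that liver and were not tested.

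**Figure D5:**
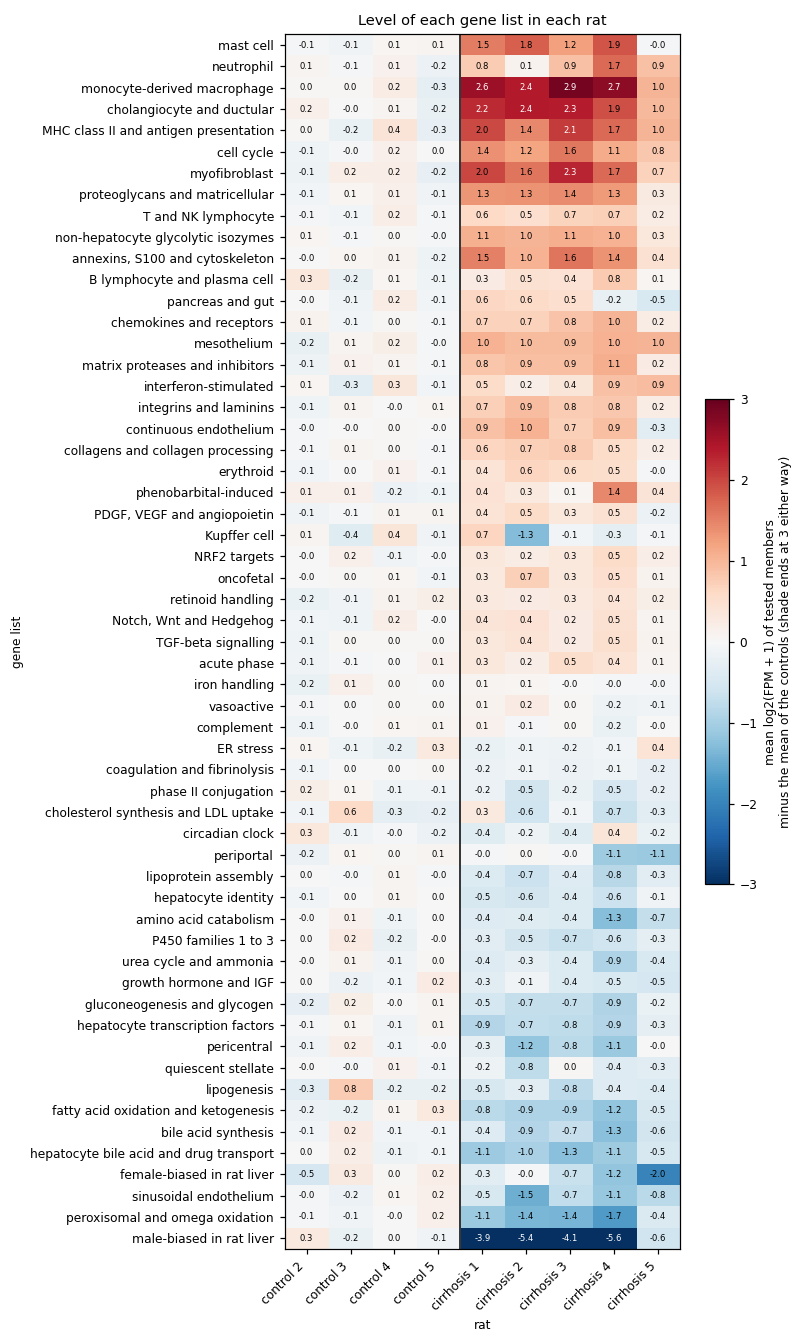
Level of each of the 57 gene lists (rows, sorted by median change) in each liver (columns): mean log2(FPM + 1) of the tested members minus the mean of the controls, red higher and blue lower, with the value printed in each cell. Replicate 5 is nearer to the control mean than each of cirrhosis 1 to 4 in 36 of the 57 rows, as for male-biased genes (-0.59).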

How the data were processed

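Poly(A) RNA of rat liver was sequenced as paired reads. Per the labels and the study's methods, the authors aligned the reads with HISAT2 (2.1.0) to the rat genome rn6 and counted fragments per Ensembl gene with featureCounts, and a read with several alignments was counted at each. The deposited values are raw counts per gene, with 32623 genes in 14 columns (11341 without a count). Whether counting used strand was not given in the sources used here.

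Groups came from the sample labels. Genes were tested with edgeR (4.0.16, in R 4.3.3), using TMM factors, filterByExpr (minimum count 10), 1 quasi-likelihood model over control, cirrhosis and eplerenone-treated cirrhosis, and the contrast cirrhosis minus control, with false discovery rate under 0.05 over 14417 genes. No p was computed for a list. DESeq2 (1.42.0), other scalings and filters, a replicate block and each liver left out in turn were alternatives. The fit was tested on simulated data.

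Named genes were the 10 largest changes each way among called genes without overlap and with at least 1 FPM in both groups, up to 4 called members a list, and a fixed set; others are marked as named after their values were seen. Members and lists were chosen with earlier results of these data known. Of the listed symbols, 1062 matched by symbol, 1 by synonym and 51 did not. Promoter sequences are from RefSeq, build GRCr8, while the files use rn6. Some genes are not reported here.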

Additional observations from a re-analysis of the deposited data

Results flagged for a closer look

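A value was singled out where the gap between 1 liver and the nearest other liver of its group, divided by the range of the group, passed the 95% critical value of Dixon's test. Of 564 group values of lists and named genes (without Cyp2b2 and Cyp3a23/3a1), 50 did so, 22 of them in cirrhosis 5. Chance singles out about 1 in 20 groups, and members of a list share their livers. For list levels, as mean log2(FPM + 1) relative to the controls, cirrhosis 5 stood at -0.31 for continuous endothelium (others 0.73 to 1.04), 1.02 for monocyte-derived macrophage (others 2.38 to 2.87), 0.31 for non-hepatocyte glycolytic isozymes (others 1.03 to 1.09), -0.27 for hepatocyte transcription factors (others -0.89 to -0.73), 0.27 for proteoglycans and matricellular (others 1.28 to 1.42) and 0.41 for ER stress (others -0.20 to -0.09). Cirrhosis 4 had list levels of 1.44 for phenobarbital-induced (others 0.06 to 0.44) and -0.93 for urea cycle and ammonia (others -0.45 to -0.27). Control 3 had list levels of 0.24 for bile acid synthesis (others -0.09 to -0.07) and 0.76 for lipogenesis (others -0.31 to -0.21). The level in control 4 was 0.20 for T and NK lymphocyte (others -0.08 to -0.05). In control 2 it was -0.13 for TGF-beta signalling (others 0.04 to 0.05).

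In FPM, the genes singled out in cirrhosis 5 were at 10.9 for Bok (others 65.9 to 80.3), 12.9 for Serpinb1a (others 70.1 to 92.7), 18.2 for Kif12 (others 57.1 to 62.1), 56.1 for Stac3 (others 0.0816 to 2.77), 26.1 for Aox3 (others 0.108 to 1.23), 230.4 for Asgr2 (others 162 to 169), 288 for Igfals (others 111 to 157), 2136 for Cat (others 319 to 831), 11.7 for Pex11a (others 4.75 to 6.72), 330.4 for Dgat2 (others 190.03 to 204), 2.68 for Fbln1 (others 12.1 to 15.9), 6.90 for Lama5 (others 21.7 to 23.1), 6.43 for Igf2bp3 (others 0.0539 to 1.88), 1.25 for Gpc3 (others 9.28 to 10.2), 1184 for Cyp2c11 (others 3.06 to 29.6) and 3779.9 for Ca3 (others 10.4 to 90.4). Those of cirrhosis 4 were at 1067 for Cyp2b1 (others 14.4 to 45.2), 385 for Ccn2 (others 19.6 to 94.5), 439 for Baat (others 856 to 899), 2763 for Ephx1 (others 1126 to 1485) and 15.7 for Oasl (others 8.94 to 10.1). Those of cirrhosis 2 were at 4.77 for Abcg5 (others 0.476 to 1.72), 4.61 for Aldh1a7 (others 0.971 to 1.94), 1.06 for Abcg8 (others 0 to 0.222) and 27.1 for C7 (others 4.26 to 6.49).

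In control 2 the values were 31.2 for Olr35 (others 11.6 to 13.1), 518 for Otc (others 473 to 479) and 0.0603 for Fst (others 0). In control 3 they were 6.88 for Ccn2 (others 4.32 to 4.58), 0.0578 for Trem2 (others 0), 70.8 for Lpin1 (others 14.04 to 23.5), 325 for Sc5d (others 224 to 237) and 0.116 for Cxcl6 (others 0). In control 4 they were 2.20 for Serpinb1a (others 1.21 to 1.34) and 7.45 for Msln (others 3.53 to 4.13). In control 5 they were 59.0 for Pdk4 (others 23.3 to 28.1), 0.763 for Loxl1 (others 2.26 to 2.50) and 0.0636 for Vil1 (others 0). The values of Trem2, Vil1, Fst and Cxcl6 rest on 1 or 2 counts in a single control. No explanation of these values was tested.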

How the results depend on the processing

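Scaled by total counted reads, 3055 genes were higher and 366 lower, and 89.3% of calls were rises. With DESeq2 size factors 69.4% of calls were rises, with DESeq2's Wald test 64.3% and with no filter on low counts 70.3%. With cirrhosis 1 to 3 alone, whose titles share the prefix 15, 1640 genes were lower, against 2297 higher, and 58.3% of calls were rises. Leaving out 1 liver at a time gave 1035 to 2590 higher genes, 330 to 2022 lower genes and 56.2 to 76.9% rises. The lowest counts came without control 5 and the highest without cirrhosis 5, and without cirrhosis 5, 1917 of the 1939 higher and 953 of the 967 lower genes were called again in the same direction. The other alternatives run (DESeq2 in place of or beside edgeR, at least 10 counts in every liver, control and cirrhosis livers only) gave counts of higher and lower genes within 1.5 times the reported ones, and 0 genes were called in opposite directions under any alternative run.

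Control and cirrhosis livers share replicate numbers, but the number pairs no animals. The correlations of the deviations of same-numbered livers from their group means were -0.18, -0.06, 0.08 and 0.19 for replicates 2 to 5. With a replicate block 1000 genes were higher and 514 lower (13525 tested). The same 8 livers without the block, an alternative chosen after seeing the data, gave 1328 higher and 554 lower genes and 70.6% rises.

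Of 239 genes followed through all alternatives, 213 were called, 0 changed direction, 88 lost the call without some 1 liver and 98 under at least 1 alternative. Total counted reads cost 33 calls, all of falls, namely those of Hnf4a, Serpinc1, Asgr2, Rspo3, Cyp2f4, Ugt2b15, Irs1, Baat, Slc25a13, Tdo2, Lpin1, Stard4, Sc5d, Nsdhl, Lipc, Pygl, F9, C8a, C6, Prox1, Foxa2, Igf2bp3, Ern1, Clock, Igf1, Loxl4, Abcc2, Fga, Steap4, Ackr4, Dpt, Fn1 and Nos1, and added 5 rises, Pdgfrb, Cd34, Afp, Folr2 and Cd68. The replicate block cost 51 calls, the prefix 15 livers alone 24, no filter on low counts 12, the filter of at least 10 counts 7, control and cirrhosis livers alone 6, DESeq2 size factors 3 and DESeq2's Wald test 0. That 0 leaves out Cyp2b1 and Gpc3, to which the Wald test gave no adjusted p and so no call. Depth limits the genes near the filter, since 3 counts in 1 library are 0.122 to 0.191 FPM. The cause of these differences was not tested.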
